A study of Mus musculus with 12 samples.

Results

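The response of liver macrophage preparations to an antibody that activates CD40 was measured in mice of the control genotype. The comparison rests on 6 of the 12 libraries of the series: 3 of WT mice killed 30 h after an intraperitoneal injection of an agonistic anti-CD40 antibody at 20 mg/kg, and 3 of WT mice given saline by the same route. They were chosen by the column names of the deposited table, which give treatment and genotype. The study also holds 3 saline and 3 anti-CD40 libraries of sph/sph mice, which carry a mutation of the spectrin gene Spta and have fragile red cells. They enter here only through the shared estimate of spread and through the comparison that closes the account. All mice were described as males of 8 to 10 weeks. The labels give the control genotype as Spta wt/wt and the design text calls these mice wild-type littermates, whereas the columns of the table call them heterozygous. They are called WT here, and which name holds could not be settled from the sources used here. No group carried a transgene or Cre allele that the labels name. Cells came from livers digested in place with collagenase, from which the nonparenchymal fraction was bound to beads through F4/80, the macrophage surface protein encoded by Adgre1. The libraries are therefore an enrichment and not a sorted population, and the design text counts 3 mice per group, so each library is taken as 1 animal.

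CD40 is a receptor of the tumour necrosis factor (TNF) receptor family on macrophages, dendritic cells and B cells. Its ligand sits on activated T cells, and clustering of CD40 by the ligand or by an agonistic antibody recruits TRAF adaptors that activate NF-kB and MAP kinases. Macrophages and dendritic cells then make cytokines such as interleukin 12, which drive interferon-gamma from NK and T cells, and interferon-gamma in turn acts back on macrophages through STAT and IRF factors. Kupffer cells, which reside as macrophages in the liver sinusoids, keep their identity through signals from neighbouring endothelial, stellate and parenchymal cells, among them Notch ligands, BMP and TGF-beta ligands and agonists of the nuclear receptor LXR-alpha, and they depend on CSF1 for survival.

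Total counts ran from 15586731 to 18006254 in the saline libraries and from 15883477 to 18940990 in the anti-CD40 libraries. Libraries of a group are called A, B and C in the order of the columns, and values are given in that order. The names of the WT and sph/sph columns called A share an identifier within each treatment, whose meaning is not given in the sources used here, and no identifier is shared between saline and anti-CD40 columns. Although every mouse was described as male, 1 library of each of the 4 groups, the one called A, held 0 counts of the Y-linked genes Ddx3y, Uty, Eif2s3y and Kdm5d, while the other 8 held 2436 to 4055. Counts of calls are therefore also given without these 4 libraries, which leaves 2 libraries per group. Levels are CPM, read counts brought to a common library size scaled by the trimmed mean of M values (TMM), and errors of levels are the SD over 3 libraries. A gene was called risen or fallen at a Benjamini-Hochberg adjusted p under 0.05 from edgeR's quasi-likelihood test. Where a named gene overlaps an annotated gene on the opposite strand, reads of the 2 cannot be told apart, because whether reads were counted by strand is not given in the sources used here. This holds for Arg2, B2m, Batf2, Bhlhe41, Bid, Bst1, Ccdc148, Cp, Csf1r, Cx3cr1, Cxcr6, Dbp, Dkc1, Dusp1, Eng, F2rl2, Fh1, Gas6, Glul, Hadha, Il18bp, Il4i1, Irf1, Irf2, Irf3, Irf7, Mtf1, Nfkbib, Nhp2, Nr1d1, P2ry12, Parp3, Pax5, Pdha1, Ptger4, Ptgs1, Rrp9, Stat3, Stat6, Tbxas1, Tgtp1, Tgtp2, Tnfrsf9, Vsir and Wars. The error of a log2 fold is an approximate standard error, |log2 fold| / sqrt(F), with F the test statistic.

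The target of the antibody and the bait of the beads both changed. Cd40 (ENSMUSG00000017652, chromosome 2, 165055627 to 165072948 in GRCm38) stood at 26.8, 17.7 and 18.3 CPM in saline and 741, 235 and 232 CPM under anti-CD40, a rise of 4.27 ± 0.55 on the log2 scale (edgeR adjusted p = 0.000347). Adgre1 (ENSMUSG00000004730, chromosome 17, 57358691 to 57483527) stood at 1811, 1579 and 1942 CPM in saline and 173, 51.4 and 39.8 CPM under anti-CD40 (log2 fold -4.34 ± 0.57; edgeR adjusted p = 0.000371). No library of one treatment overlapped with one of the other for either gene, and library A was the highest of the anti-CD40 libraries for both. Because the bait itself fell, the cells that the beads held cannot be told apart from the state of those cells, and in such bulk samples fewer cells of a type and less RNA per cell cannot be told apart.

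The saline libraries carried the defining markers of Kupffer cells at high level, and the anti-CD40 libraries did not. Summed over 14 markers, the Kupffer cell level was 41945, 35892 and 43409.5 CPM in saline and 1759, 1463 and 2644 CPM under anti-CD40. Of these markers none of 14 tested members rose and 12 (85.7%) fell, with a median log2 fold of -4.99. The 2 that were not called were the scavenger receptor Marco (654 ± 339 CPM in saline and 487 ± 218 CPM under anti-CD40) and the endothelial and Kupffer cell cadherin Cdh5 (1126 ± 32.1 CPM in saline and 745 ± 396 CPM under anti-CD40). In the whole table, 19.4% of the 13844 genes tested rose and 19.7% fell, and the median log2 fold of all genes was 0.05. None of the 14 markers was at 0 in all 6 WT libraries. Without the 4 libraries with no Y-linked counts none rose and 11 fell.

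Marker sums of several other cell types differed between the treatments too. The 16 markers of T and NK cells summed to 98.1, 74.9 and 103 CPM in saline and 302, 2223 and 830.2 CPM under anti-CD40, and 14 (87.5%) of 16 tested members rose and none fell (median log2 fold 6.52). Without the 4 libraries with no Y-linked counts 11 rose and none fell. Their level was highest in library B and lowest in library A. The 10 dendritic cell markers summed to 204, 231 and 199 CPM in saline and 2325, 1269.6 and 1655 CPM under anti-CD40. Among them 5 rose (Ccr7, Fscn1, Siglech, Bst2 and Zbtb46), none fell and 5 were not called. Their log2 folds ran from -2.47 to 6.96, with a median of 1.96. Siglech was not called without WT saline A, B or C or WT anti-CD40 B or C. Whether dendritic cells were more numerous was not tested. The 10 monocyte markers summed to 299.7, 302 and 601 CPM in saline and 3669, 2985 and 1391 CPM under anti-CD40. Of these 6 rose and none fell, and 2 and 3 rose without WT saline A and B (2 without the 4 libraries with no Y-linked counts). The 10 neutrophil markers summed to 198, 155 and 174 CPM in saline and 562, 653 and 211 CPM under anti-CD40, with 5 risen (3 without WT saline B, without WT anti-CD40 B or without the 4 libraries) and library C of the anti-CD40 group close to the saline libraries.

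For the remaining cell types a smaller share of the markers was called in the fit of all 12 libraries. Of the 10 B cell markers 3 rose, Ms4a1, Pax5 and Mzb1. None was called by limma-voom or without the 4 libraries with no Y-linked counts. The same held without any 1 of WT saline A, B and C and WT anti-CD40 B and C. In contrast, 6 and 7 were called without sph/sph anti-CD40 B and C, and 5 by DESeq2. A fit of only the 6 WT libraries called 8, and one of only the 4 WT libraries with Y-linked counts called 7. Sinusoidal endothelial markers summed to 3209, 6799 and 5328 CPM in saline and 4105, 6164 and 10279 CPM under anti-CD40 and overlapped between the treatments. Among them 2 of 15 rose, Lyve1 and Dnase1l3 (4 without WT anti-CD40 A), and none fell (2 without WT anti-CD40 C). Hepatocyte markers summed to 5744, 4669 and 3324 CPM in saline and 3127, 2056 and 945 CPM under anti-CD40 and stellate cell markers to 358, 1543 and 919.9 CPM in saline and 343, 269 and 204 CPM under anti-CD40. In these lists 3 of 12 and 3 of 10 fell, counts that dropped to 1 in each list without WT anti-CD40 B or C and, for stellate cells, without WT saline B. For hepatocytes 6 fell without sph/sph anti-CD40 C and in a fit of only the 6 WT libraries, 8 by DESeq2, 2 without the 4 libraries with no Y-linked counts and 9 in a fit of only the 4 WT libraries with such counts. For stellate cells 5 fell by DESeq2 and 8 in the last of these fits. Of the 4 bile duct markers tested 1, Spp1, rose. Platelet markers summed to 595, 543 and 509 CPM in saline and 67.5, 62.8 and 113 CPM under anti-CD40, all anti-CD40 values being below all saline values. That sum was carried by Clec1b, which Kupffer cells also express and which stood at 579, 513 and 475 CPM in saline and 22.2, 19.3 and 54.1 CPM under anti-CD40 (log2 fold -4.03 ± 0.42), while the median log2 fold of the 8 markers was 2.52. They rose in 2 of 8, Gp9 and Itga2b, neither of which was called without WT saline A or C or WT anti-CD40 C, and fell in 1, Clec1b. Of 8 basophil, mast cell and eosinophil markers Gata2 rose, though not without WT saline A or C or WT anti-CD40 C, and Siglecf fell. Of 10 erythroid markers Alas2 fell, a call lost in 9 of the 12 fits that left out 1 library. The part of such cells in the changes below was not tested.

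**Figure D1:**
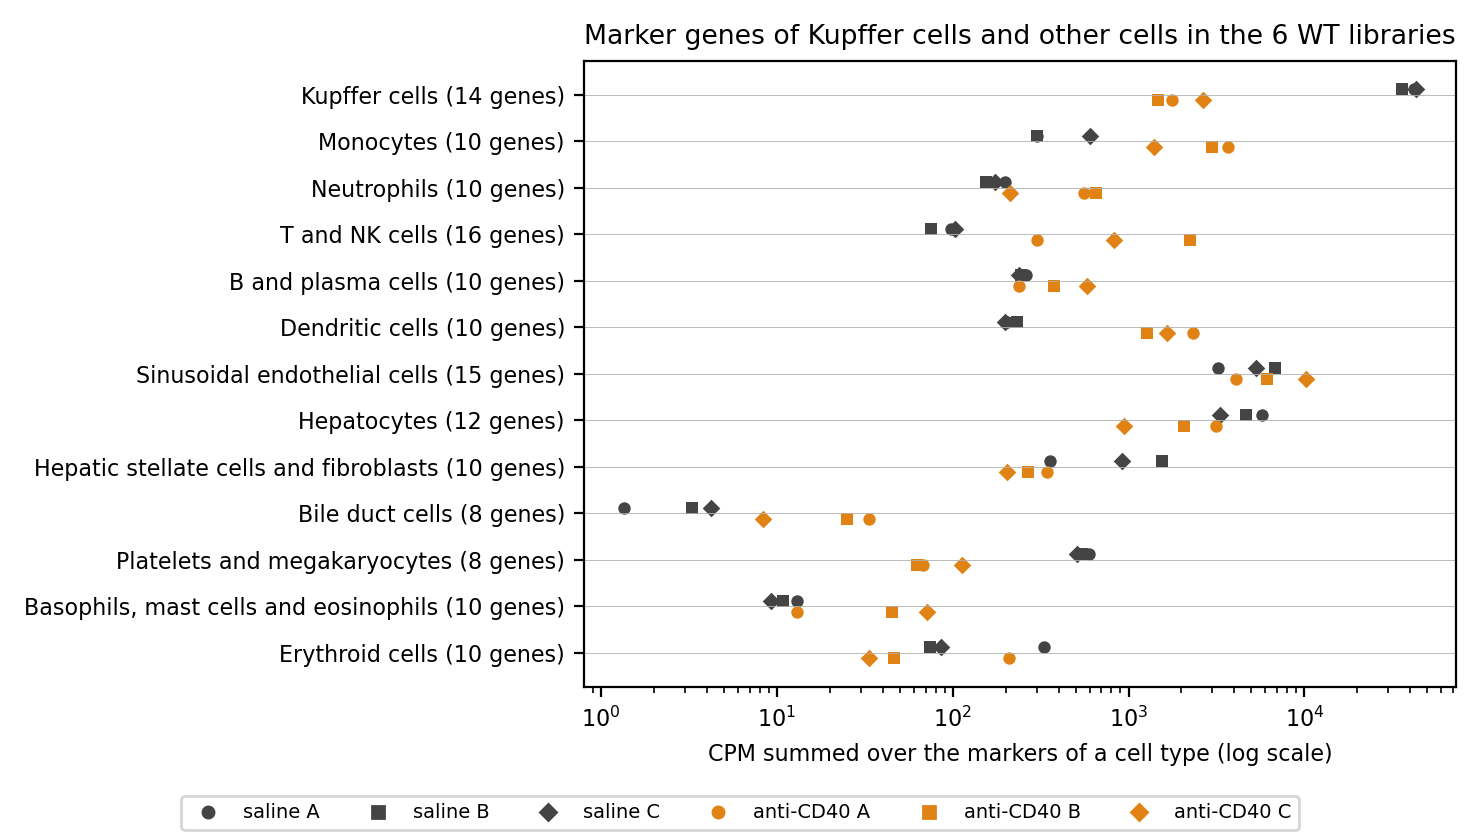
Summed level of marker genes of 13 cell types in the 6 WT libraries. The x axis is the sum of CPM over the markers on a log scale, rows are cell types, dark symbols are saline and orange symbols anti-CD40 libraries, with circles, squares and diamonds for A, B and C. The sum of Kupffer cell markers is lower in all 3 anti-CD40 libraries, and the sums of T and NK cell, dendritic cell and monocyte markers are higher.

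Anti-CD40 changed a large share of the transcriptome. Of 13844 genes tested 5420 (39.2%) were called, 2690 risen and 2730 fallen, with median log2 folds of 1.42 and -1.40. When the change had to exceed 2-fold by the TREAT test of edgeR, 791 genes (5.71%) rose and 891 (6.44%) fell. The former count was 490, 489 and 502 without WT saline A, B and C. Among the calls 277 genes rose by more than 5 and 123 fell by more than 5 on the log2 scale. All 3 anti-CD40 values lay above all 3 saline values for 4059 genes (29.3%) and below for 3871 (28%). The count of rises was the less stable: it was 1093, against 1752 falls, without the 4 libraries with no Y-linked counts, 1724 and 1647 without WT saline A and B, and 2891 against 2870 in a fit of only the 4 WT libraries with Y-linked counts. No gene was called in the opposite direction in any of the 23 other settings.

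**Figure D2:**
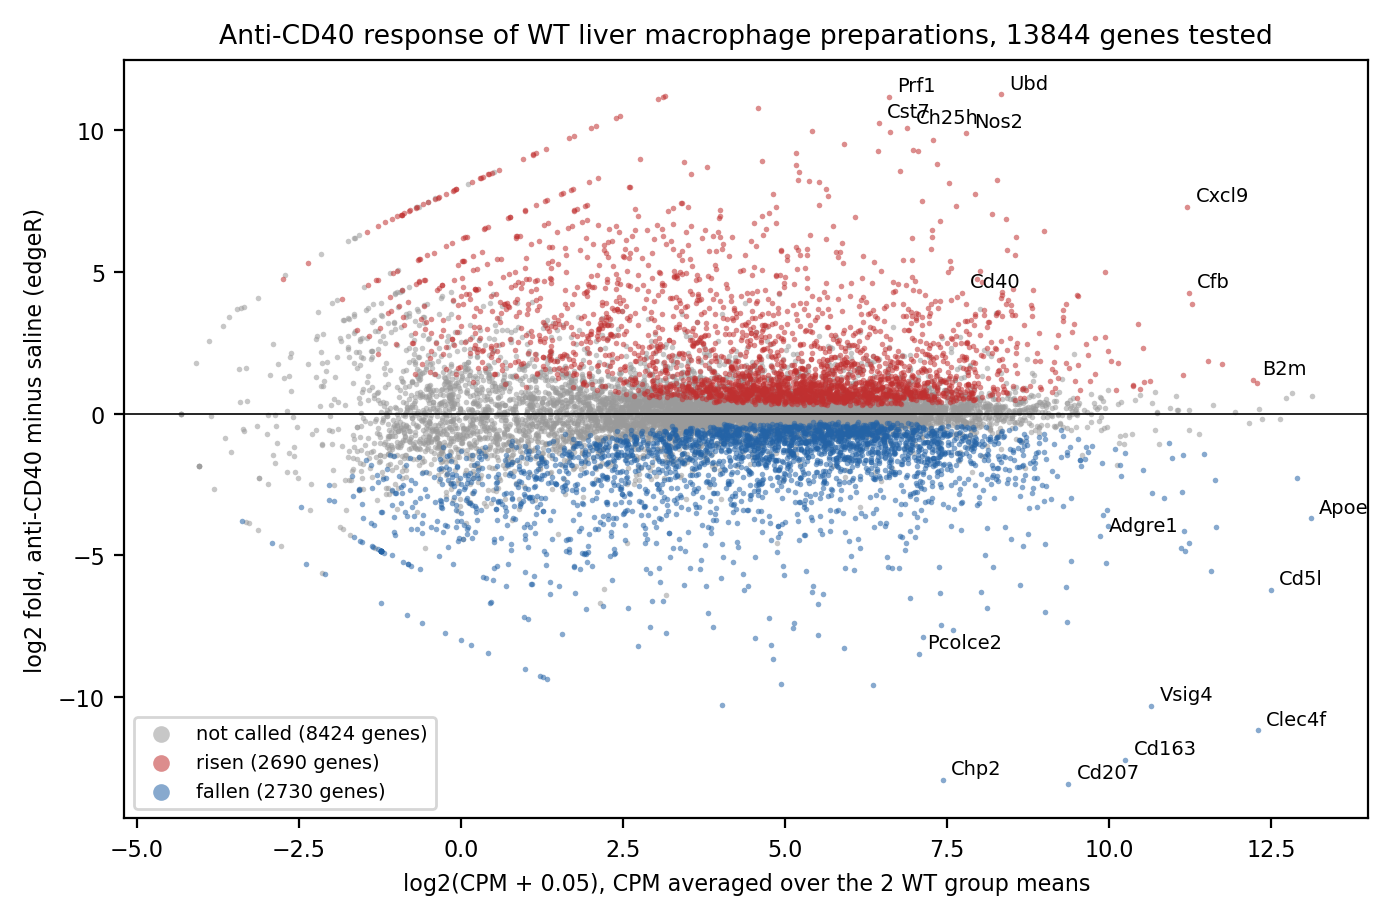
Log2 fold of anti-CD40 against saline in WT (y axis) against the level of each gene (x axis, log2 of the CPM averaged over the 2 group means plus 0.05). Red points are the 2690 genes called risen, blue the 2730 called fallen, grey the rest. The falls of Cd207, Cd163, Clec4f and Vsig4 lie below -10 at high level, while the largest rise among genes of such a level is that of Cxcl9.

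The 12 largest rises were taken from called genes of at least 10 CPM whose libraries did not overlap between the treatments. They came from cytotoxic lymphocyte genes, from an interferon- and TNF-induced modifier and from macrophage effector genes. Ubd, a ubiquitin-like modifier induced by interferon-gamma and TNF (ENSMUSG00000035186, chromosome 17, 37193892 to 37196095), stood at 0.386, 0.275 and 0.111 CPM in saline and 984, 377 and 573 CPM under anti-CD40 (log2 fold 11.28 ± 1.82; edgeR adjusted p = 0.00116). Nos2, the inducible nitric oxide synthase (ENSMUSG00000020826, chromosome 11, 78920787 to 78960254), stood at 0.835, 0.385 and 0.166 CPM in saline and 1144, 79.1 and 98.8 CPM under anti-CD40 (log2 fold 9.91 ± 1.9; edgeR adjusted p = 0.00289). Ch25h, which makes 25-hydroxycholesterol (ENSMUSG00000050370, chromosome 19, 34473778 to 34475164), stood at 0.129, 0.44 and 0.0554 CPM in saline and 115, 258 and 335 CPM under anti-CD40 (log2 fold 10.08 ± 0.80; edgeR adjusted p = 2.49e-05). For these 3 genes every anti-CD40 library lay far above every saline library, but the order of the anti-CD40 libraries differed: A led for Ubd and Nos2, with Nos2 in A more than 10 times its level in B or C, and A was lowest for Ch25h. Neither Ubd nor Nos2 was called by limma-voom (adjusted p = 0.117 and 0.0687), whereas edgeR called both in every fit that left out 1 library.

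Genes of cytotoxic cells were highest in library B of the anti-CD40 group. Prf1, the pore-forming protein perforin, stood at 0, 0.165 and 0.0554 CPM in saline and 30.5, 422 and 132 CPM under anti-CD40 (log2 fold 11.17 ± 1.76; edgeR adjusted p = 0.000998). Gzmc, a granzyme, had 1 count in the 3 saline libraries together and reached 18.9, 82.2 and 42.4 CPM under anti-CD40, a ratio of 2582 (counting interval 463 to 102010.0). Klra7, a receptor of NK cells from a family of near-identical genes, and Klrg1, an inhibitory receptor of NK and effector T cells, had 0 counts in saline. Klra7 reached 1.99, 39.3 and 7.83 CPM and was at least 297-fold higher, and Klrg1 reached 0.997, 24.1 and 7.34 CPM and was at least 198-fold higher, both against a floor of 3 counts over the group. In all 4 genes library B was highest and A lowest, the order of the summed T and NK cell markers given above, of which Prf1 is itself 1. The part of those cells in the rises was not tested.

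The other leading rises were of mixed kind. Cst7, a cysteine protease inhibitor of leukocytes, stood at 0.0643, 0.22 and 0.111 CPM in saline and 269.8, 146 and 107 CPM under anti-CD40 (log2 fold 10.26 ± 0.84; edgeR adjusted p = 2.84e-05). Tnfrsf9, a costimulatory receptor of the TNF receptor family, stood at 0.0643, 0.165 and 0 CPM in saline and 38.7, 133 and 83.9 CPM under anti-CD40 (log2 fold 9.98 ± 1.06; edgeR adjusted p = 0.000117). AA467197 stood at 0.193, 0.11 and 0.277 CPM in saline and 346, 150.0 and 90.2 CPM under anti-CD40 (log2 fold 9.93 ± 1.46; edgeR adjusted p = 0.000678). Serpinb9b, of the serpin family that restrains granzymes, had 0 counts in saline, reached 14.5, 10.9 and 5.66 CPM and was at least 172-fold higher. Thbs4, a thrombospondin of the extracellular matrix, was carried by 1 library: it had 0 counts in saline and reached 50.7, 0.840 and 1.62 CPM under anti-CD40 (at least 257-fold higher; edgeR adjusted p = 0.0274), and its call was lost without WT saline A, B or C (edgeR adjusted p = 0.061, 0.0629 and 0.0633), without sph/sph saline B (0.058) and by limma-voom.

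The 12 largest falls, chosen by the same conditions, were dominated by genes of resident liver macrophages and ended near the limit of detection. Clec4f, a Kupffer cell lectin that binds galactose (ENSMUSG00000014542, chromosome 6, 83644542 to 83656187), went from 10361, 9764 and 9962 CPM in saline to 2.93, 2.41 and 7.53 CPM under anti-CD40 (log2 fold -11.18 ± 0.84; edgeR adjusted p = 1.75e-05). Cd207, the lectin langerin (ENSMUSG00000034783, chromosome 6, 83671215 to 83677857), stood at 1242, 1184 and 1546 CPM in saline and 0.133, 0.0525 and 0.246 CPM under anti-CD40 (log2 fold -13.07 ± 0.85; edgeR adjusted p = 8.46e-06). Vsig4, a complement receptor (ENSMUSG00000044206, chromosome X, 96247203 to 96293438), stood at 3629.6, 2926 and 3067 CPM in saline and 7.05, 0.21 and 0.542 CPM under anti-CD40 (log2 fold -10.31 ± 1.26; edgeR adjusted p = 0.000249). The saline libraries were close to each other for each of these genes, and all 3 anti-CD40 libraries were lower by orders of magnitude.

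Cd163, which takes up complexes of haemoglobin and haptoglobin, stood at 1891, 2283 and 3122 CPM in saline and 1.13, 0.21 and 0.246 CPM under anti-CD40 (log2 fold -12.22 ± 0.89; edgeR adjusted p = 1.59e-05). Chp2, a calcium-binding protein related to calcineurin, went from 333, 292 and 413 CPM to 2 counts in the 3 anti-CD40 libraries together, a ratio of 9425 (counting interval 2609 to 77834). Cd209f, of the DC-SIGN lectin family, went from 35.8, 36.5 and 24.9 CPM to 1 count, a ratio of 1755 (counting interval 314 to 69346), and Etnppl, an enzyme of phosphoethanolamine breakdown, from 11.4, 23.7 and 4.10 CPM to 2 counts, a ratio of 359 (counting interval 98.9 to 2967). Etnppl was the 1 gene of these 12 whose call did not hold without the 4 libraries with no Y-linked counts (edgeR adjusted p = 0.0527), and limma-voom did not call it either (adjusted p = 0.0741).

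The remaining 5 large falls were of a potassium channel, a matrix enzyme and genes of other kinds. Kcnj16, an inwardly rectifying potassium channel, went from 163 ± 8.80 to 0.217 ± 0.159 CPM (log2 fold -9.58 ± 1.13). Mmp27, a matrix metalloproteinase, went from 61.3 ± 15.2 to 0.084 ± 0.103 CPM (log2 fold -9.55 ± 0.78). Tmc3, a transmembrane channel-like protein, went from 56.2 ± 16.3 to 0.135 ± 0.0775 CPM (log2 fold -8.68 ± 0.74). Pcolce2, an enhancer of procollagen processing, went from 267 ± 19.9 to 0.753 ± 0.264 CPM (log2 fold -8.47 ± 0.34; edgeR adjusted p = 1.46e-06), and the coiled-coil gene Ccdc148 from 119.6 ± 10.3 to 0.377 ± 0.104 CPM (log2 fold -8.26 ± 0.38). All 5 kept their calls in each of the 23 other settings.

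**Figure D3:**
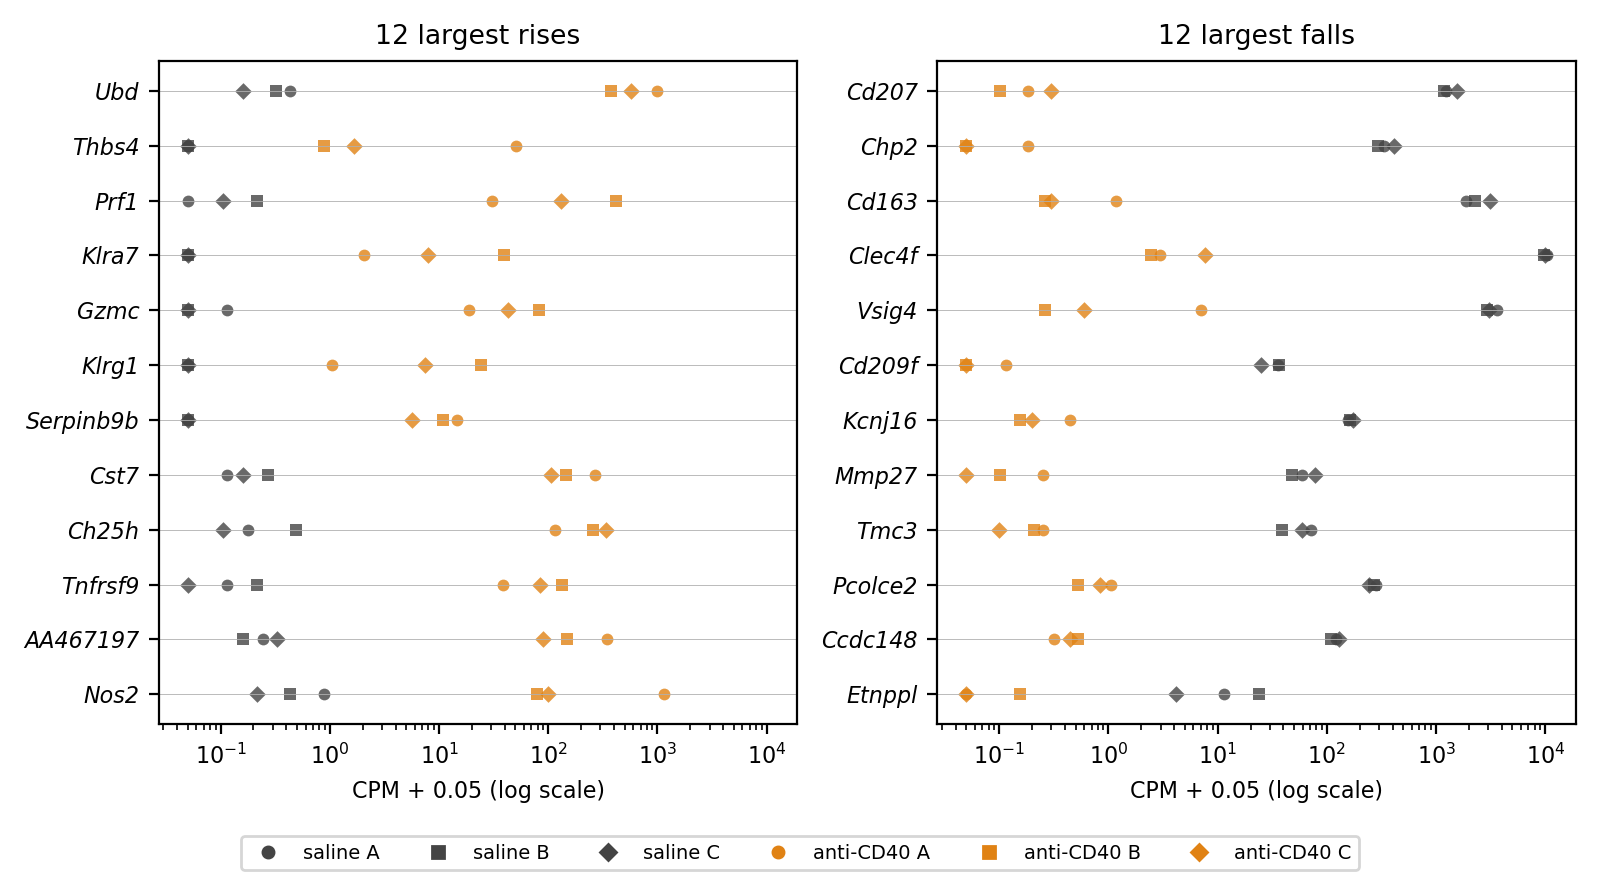
Level of the 12 genes with the largest rises (left) and the 12 with the largest falls (right) in each WT library, on a log scale of CPM plus 0.05. Dark symbols are saline and orange symbols anti-CD40, with circles, squares and diamonds for libraries A, B and C. Saline and anti-CD40 libraries are apart for all 24 genes because this was a condition of their choice. Thbs4 and Nos2 show anti-CD40 A far above B and C.

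Per kilobase of exon, the largest losses were again of genes known from resident macrophages. Apoe, the apolipoprotein of lipid-exporting macrophages, stood at 8508, 8355 and 6183 CPM per kilobase in saline and 844, 431 and 513 CPM per kilobase under anti-CD40 (log2 fold -3.69 ± 0.45; edgeR adjusted p = 0.000247). Cd5l, a secreted scavenger protein of tissue macrophages, stood at 5823, 4837 and 6139 CPM per kilobase in saline and 66.6, 40.7 and 118 CPM per kilobase under anti-CD40 (log2 fold -6.22 ± 0.46; edgeR adjusted p = 1.57e-05). The 3 chains of the complement starter C1q fell together, C1qa by a log2 fold of -4.13 ± 0.56, C1qb by -4.55 ± 0.56 and C1qc by -4.85 ± 0.60, and so did the pattern receptor ficolin Fcna (-4.73 ± 0.49) and the secreted Wfdc17 (-3.40 ± 0.42). With Clec4f these make up the 8 largest losses per length. For each of the 3 C1q chains anti-CD40 A kept more transcript than B or C, 487 against 95.7 and 156 CPM for C1qa.

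The largest gains per kilobase were of antigen presentation, chemoattraction and complement. Cxcl9, a chemokine for activated T cells, stood at 10.7, 12.1 and 6.69 CPM per kilobase in saline and 1317, 1264 and 2093 CPM per kilobase under anti-CD40 (log2 fold 7.31 ± 1.32; edgeR adjusted p = 0.00215). Cfb, the protease precursor of the alternative complement pathway, stood at 105, 51.4 and 96.9 CPM per kilobase in saline and 2318, 1285 and 1238 CPM per kilobase under anti-CD40 (log2 fold 4.26 ± 0.98; edgeR adjusted p = 0.00713). Ly6a, an interferon-induced surface protein, stood at 66.1, 32.4 and 51.4 CPM per kilobase in saline and 1346, 1455 and 1936 CPM per kilobase under anti-CD40 (log2 fold 4.98 ± 0.60; edgeR adjusted p = 0.000236). B2m, the light chain of MHC class I, rose from an already high level (1.20 ± 0.34; edgeR adjusted p = 0.019), as did the class I heavy chain H2-D1 (1.08 ± 0.31; edgeR adjusted p = 0.0184), which shares sequence with other class I genes. B2m lost its call without WT saline B or without C (edgeR adjusted p = 0.0791 and 0.0665), and H2-D1 without the same libraries (0.0764 and 0.0724). The other 3 of the 8 largest gains did not pass the test: mt-Co1 (0.61 ± 0.31), Lyz2 (0.57 ± 0.40) and Actb (0.73 ± 0.40).

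To describe the response by function, 23 lists of genes were used, each given as the members called over all genes tested and the median log2 fold, to be read against 19.4% risen, 19.7% fallen and a median of 0.05 for all genes. Of each list mainly the 4 called members with the largest change and the member with the highest level are described. Other members are named for their role and were chosen after their values were seen. Counts are also given without the 4 libraries with no Y-linked counts where they moved by more than 1.5 times, and single libraries are named where leaving 1 out did so.

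**Figure D4:**
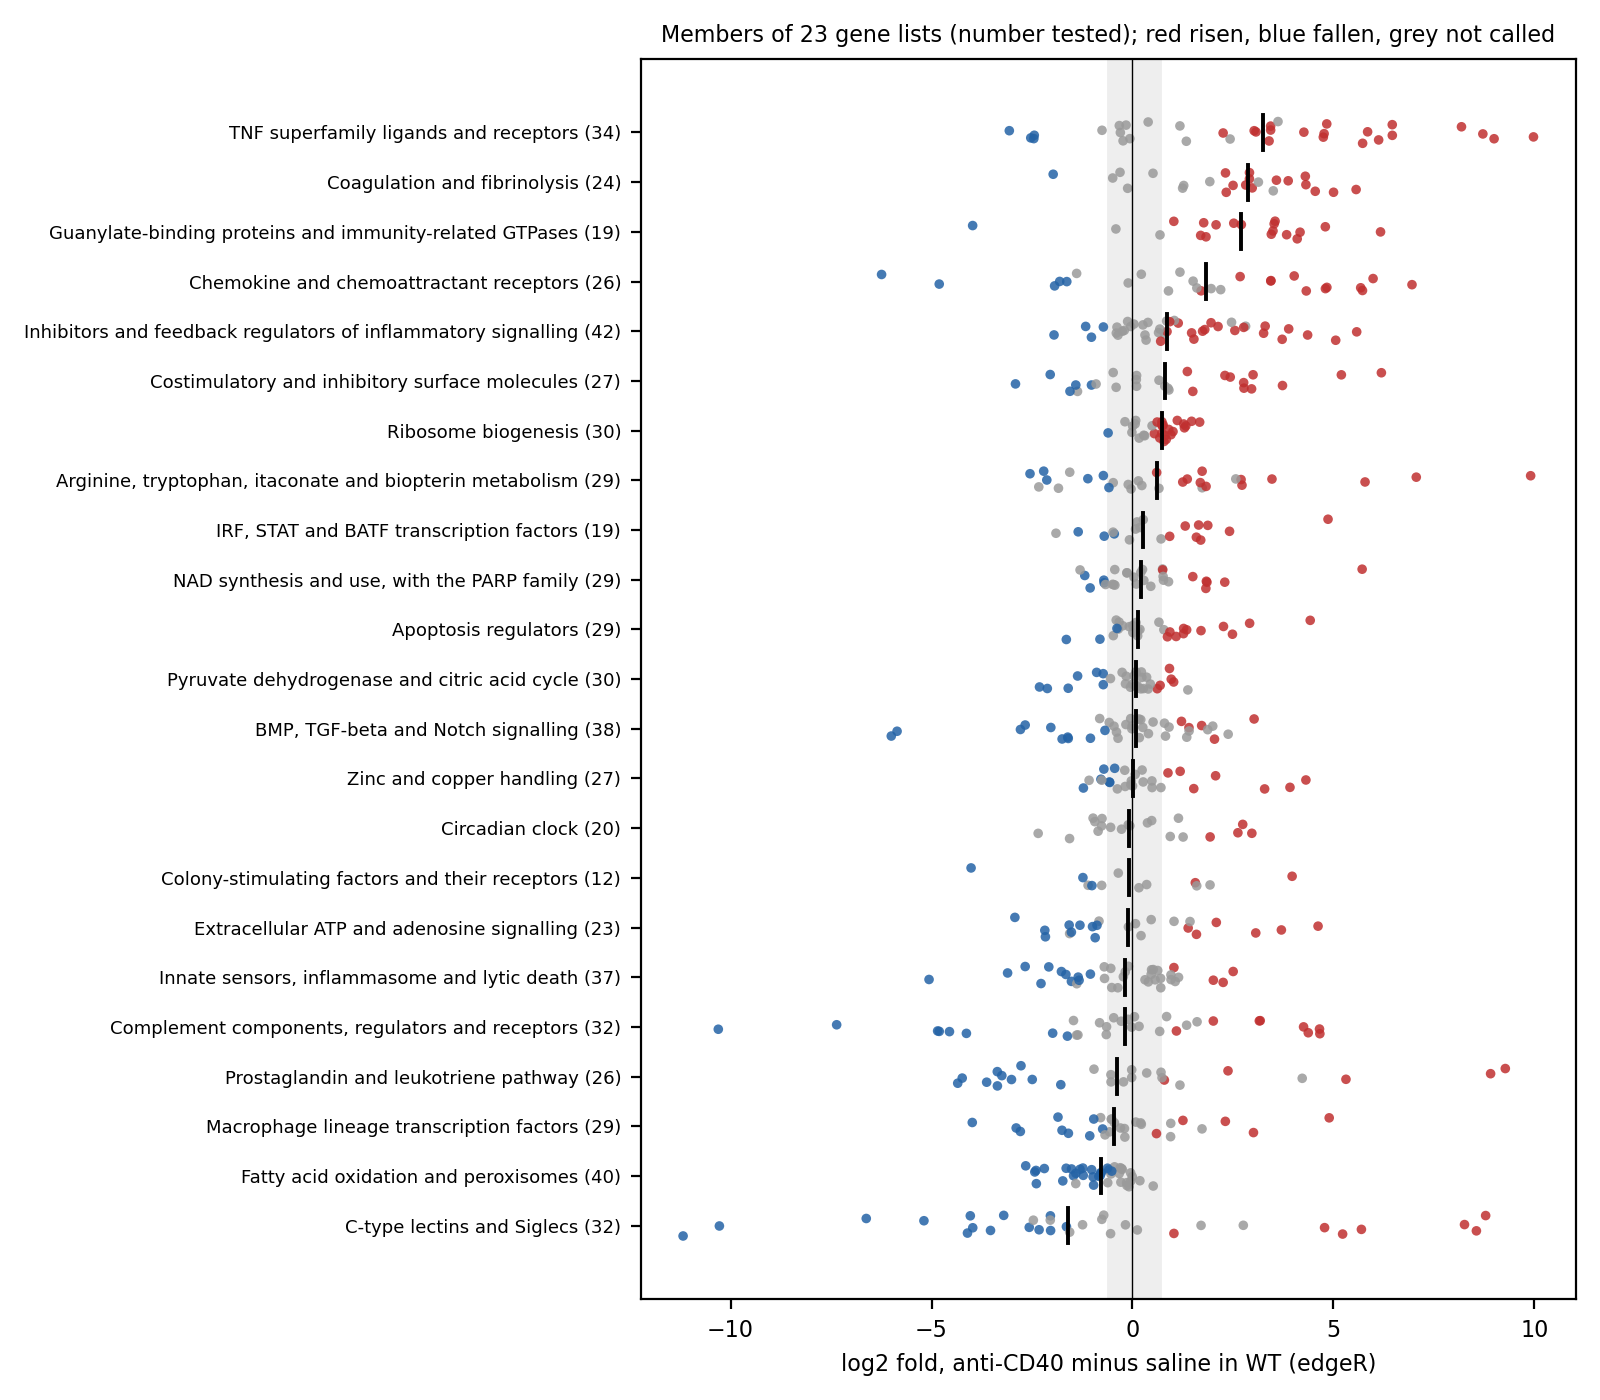
Log2 folds of the members of 23 gene lists in WT. Each point is a gene (red risen, blue fallen, grey not called; the number tested is in brackets), the black bar is the list's median and the grey band is the interquartile range of all genes tested. TNF superfamily, coagulation and GTPase lists have medians above 2.5, and the C-type lectin list has the lowest median, -1.60.

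The TNF superfamily, to which CD40 belongs, moved upward on both the ligand and the receptor side. In all 19 (55.9%) of 34 tested members rose and 4 (11.8%) fell, and the median log2 fold was 3.24. Among ligands, Tnf stood at 5.91, 2.25 and 2.22 CPM in saline and 638, 118 and 157 CPM under anti-CD40 (log2 fold 6.46 ± 1.21; edgeR adjusted p = 0.00261), and Lta, lymphotoxin-alpha, which had 3 counts in saline, at 39.8, 28.2 and 14.7 CPM under anti-CD40, a ratio of 455 (counting interval 155 to 2209.9). Tnfsf4 and Cd40lg, the latter the ligand of CD40, had 0 counts in saline and were low under anti-CD40 (means of 3.79 and 2.16 CPM; at least 67.3-fold higher and at least 37.8-fold higher). Tnf was highest in library A, well above B and C. Ltb (5.73 ± 1.30) and Fasl (6.13 ± 1.06), ligands made largely by lymphocytes, were highest in library B, as the T and NK cell markers were. The part of those cells in these rises was not tested. Tnfsf10, the death ligand TRAIL, rose as well (3.44 ± 0.48).

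Among receptors, the rise of Tnfrsf9 was the largest, and the death receptor Fas rose from 8.72 ± 2.60 to 94.7 ± 35.2 CPM (log2 fold 3.44 ± 0.36; edgeR adjusted p = 0.000105). The receptors that transmit TNF and lymphotoxin did not pass the test: Tnfrsf1a stood at 339 ± 8.71 CPM in saline and 270.2 ± 79.2 CPM under anti-CD40, Tnfrsf1b, the member with the highest level, at 442 ± 71.5 CPM in saline and 423 ± 141 CPM under anti-CD40, and Ltbr at 129 ± 7.42 CPM in saline and 104 ± 16.3 CPM under anti-CD40. Those that fell included Tnfrsf21, the death receptor DR6 (-2.53 ± 0.25; edgeR adjusted p = 6.69e-05), Tnfrsf11a, the receptor RANK (-2.44 ± 0.51), and the ligand Tnfsf13, the B cell factor APRIL (-2.45 ± 0.26). The remaining fall was of Tnfsf18, which was below 1 CPM in saline. Of the 19 risen members Cd40 and Tnfsf10 stood above 10 CPM in saline and the other 17 below it.

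Among the transcription factors of the interferon and cytokine response 8 (42.1%) of 19 tested members rose and 3 (15.8%) fell, with a median log2 fold of 0.27. Irf1, induced by interferon-gamma, stood at 241, 204 and 151 CPM in saline and 832, 648 and 707 CPM under anti-CD40 (log2 fold 1.87 ± 0.45; edgeR adjusted p = 0.00912). Batf2, an AP-1 factor of activated macrophages, stood at 23.8, 20.1 and 15.8 CPM in saline and 123, 77.0 and 119 CPM under anti-CD40 (log2 fold 2.42 ± 0.55). Stat4, which carries interleukin 12 signals in lymphocytes, stood at 0.578, 0.824 and 0.554 CPM in saline and 7.38, 31.4 and 19 CPM under anti-CD40 (log2 fold 4.87 ± 1.20). Irf1 and Batf2 were above all saline values in every anti-CD40 library, and Stat4 was again highest in library B and lowest in A.

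Irf8, a lineage factor of mononuclear phagocytes, rose from 277 ± 51.6 to 833 ± 129 CPM (edgeR adjusted p = 0.000549) and Stat3 from 177 ± 3.18 to 336 ± 21.9 CPM (edgeR adjusted p = 0.000597). Factors of the type I interferon response did not pass the test, with Irf7 at 619 ± 199 CPM in saline and 746 ± 461 CPM under anti-CD40 (1277 CPM in library A) and Irf9 at a log2 fold of 0.19 ± 0.16. Those that fell were Batf3 (-1.35 ± 0.48), a factor of cross-presenting dendritic cells, Irf2 (-0.70 ± 0.17) and Irf3 (-0.45 ± 0.15). Of the 3 falls 1 remained without WT saline A or B, sph/sph saline A, or WT anti-CD40 B or C. Without the 4 libraries with no Y-linked counts 3 rose and 2 fell.

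The guanylate-binding proteins and immunity-related GTPases, which attack the vacuoles of intracellular pathogens in cells stimulated by interferon-gamma, rose nearly as a whole. In all 16 (84.2%) of 19 tested members rose and 1 (5.26%) fell, and the median log2 fold was 2.71. Gbp2 (ENSMUSG00000028270, chromosome 3, 142620602 to 142638008) stood at 74.9, 67.6 and 86.6 CPM in saline and 1476, 1012 and 1637 CPM under anti-CD40 (log2 fold 4.17 ± 0.76; edgeR adjusted p = 0.00231), the highest level of the list. Gbp10 stood at 5.98, 4.01 and 5.15 CPM in saline and 122, 117 and 182 CPM under anti-CD40 (log2 fold 4.80 ± 0.81) and the near-identical pair Tgtp1 and Tgtp2 rose by log2 folds of 6.17 ± 0.92 and 4.10 ± 0.73. Saline values were tight and every anti-CD40 library was at least 10 times as high for these 4 genes, with library C the highest in each. Gbp5, which acts in inflammasome assembly, rose from 46.9 ± 5.82 to 669 ± 175 CPM (log2 fold 3.84 ± 0.75; edgeR adjusted p = 0.00318). Igtp went from 48.8 ± 4.02 to 571 ± 259 CPM (log2 fold 3.55 ± 0.65; edgeR adjusted p = 0.00237).

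The exceptions in this family were Gbp2b, Gbp3 and Gbp8. Gbp2b, which encodes GBP1 and is close in sequence to Gbp2, fell, with 519, 309.9 and 234 CPM in saline and 57.2, 3.20 and 7.39 CPM under anti-CD40 (log2 fold -3.98 ± 1.32; edgeR adjusted p = 0.0363). The fall was not called without WT saline A, B or C or WT anti-CD40 B or C. Gbp3 stood at 161 ± 25.7 CPM in saline and 258 ± 45.4 CPM under anti-CD40 and Gbp8 at 217 ± 20.7 CPM in saline and 163 ± 94.1 CPM under anti-CD40, and neither was called. Reads shared between near-identical members of the family may have been split between them or lost, since how multiply mapped reads were counted is not given in the sources used here. Without the 4 libraries with no Y-linked counts 9 rose and 1 fell, and Gbp2 was then not called (edgeR adjusted p = 0.0535).

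Promoter sequence was set beside these values because interferon acts on such genes through short elements near the start. Of the 13844 genes tested 10548 matched a RefSeq promoter of GRCm38.p6, taken from 250 bases before to 50 bases after the gene's start. The letters GAAA, any 2 bases and GAAA, a core of the interferon-stimulated response element (ISRE) bound by IRF and STAT factors, stood on either strand in 2.84% of all promoters, in 5.35% of those of the 579 genes that rose past 2-fold and in 2.24% of the 670 that fell past 2-fold. They stood in 10 (90.9%) of the 11 GTPase promoters that matched, of 19 in the list. The letters TTCNNNGAA, a core of the GAS element of STAT dimers, stood in 6.16% of all promoters, 8.46% and 5.07% of the risen and fallen sets and 6 of the 11 GTPases. The match is a description of letters and does not show binding. The 10 stretches are shown because 8 belong to genes called risen and 2 to genes that were not, Gbp2b, called fallen, and Gbp3, not called. Capitals mark the ISRE letters, coordinates are of GRCm38.p6, and the sequence runs 5′ to 3′ on the gene's strand.
Gbp2, chr3:142620594-142620623, plus strand: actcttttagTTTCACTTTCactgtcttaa
Gbp5, chr3:142496759-142496788, plus strand: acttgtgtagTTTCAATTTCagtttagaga
Gbp7, chr3:142530273-142530302, plus strand: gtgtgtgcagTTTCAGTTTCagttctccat
Irgm1, chr11:48871425-48871454, minus strand: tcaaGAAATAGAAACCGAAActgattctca
Irgm2, chr11:58214903-58214932, plus strand: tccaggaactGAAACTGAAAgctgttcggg
Igtp, chr11:58199512-58199541, plus strand: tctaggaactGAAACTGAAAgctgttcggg
Tgtp1, chr11:48992304-48992333, minus strand: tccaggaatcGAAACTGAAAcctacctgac
Tgtp2, chr11:49064263-49064292, minus strand: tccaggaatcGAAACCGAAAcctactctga
Gbp2b, chr3:142594700-142594729, plus strand: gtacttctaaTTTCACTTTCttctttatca
Gbp3, chr3:142559995-142560024, plus strand: acagTTTCAGTTTCTATTTCccagatccct

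The stretches of Irgm2 and Igtp, of neighbouring genes on chromosome 11, and those of Tgtp1 and Tgtp2 are alike around the element, whereas the Gbp genes on chromosome 3 carry it on the other strand. Gbp2, which rose to 1375 CPM, and Gbp2b, which fell to 22.6 CPM, hold the same 10 letters, 59 and 137 bases before the start. Ifi47, the 1 matched promoter of the family without the letters in this window, rose from 99.2 ± 5.96 to 419 ± 36.3 CPM (log2 fold 2.08 ± 0.55). Of the 11 GTPase promoters, that of Gbp5 alone held ISRE, GAS and NF-kB letters together, and 210 bases of it, ending 41 bases before the start, are given with all 3 kinds in capitals, in the order GAS, ISRE, NF-kB, GAS.
Gbp5, chr3:142496684-142496893, plus strand: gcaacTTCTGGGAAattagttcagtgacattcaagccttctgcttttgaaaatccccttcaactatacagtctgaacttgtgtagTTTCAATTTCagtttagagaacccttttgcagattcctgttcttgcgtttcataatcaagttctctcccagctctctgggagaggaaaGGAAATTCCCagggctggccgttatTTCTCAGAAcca

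Inhibitors of inflammatory signalling, which limit the pathways that CD40 and interferon-gamma switch on, mostly rose where they changed. In all 19 (45.2%) of 42 tested members rose and 4 (9.52%) fell, and the median log2 fold was 0.86. Socs1, which blocks JAK kinases downstream of interferon-gamma (ENSMUSG00000038037, chromosome 16, 10782240 to 10785536), stood at 1.93, 1.32 and 1.11 CPM in saline and 37.6, 48.8 and 58.7 CPM under anti-CD40 (log2 fold 5.06 ± 0.74; edgeR adjusted p = 0.000652). Socs3, which restrains interleukin 6 receptors, stood at 11.4, 10.5 and 13 CPM in saline and 365, 179 and 173 CPM under anti-CD40 (log2 fold 4.36 ± 0.53; edgeR adjusted p = 0.000249). Dusp2, a phosphatase of MAP kinases, stood at 6.17, 4.23 and 3.82 CPM in saline and 88.4, 73.1 and 49.1 CPM under anti-CD40 (log2 fold 3.89 ± 0.43). All 3 genes separated the treatments without overlap, Socs1 with library C highest and Socs3 and Dusp2 with A highest. Tnip3, a partner of A20, stood at 1.16, 0.659 and 0.332 CPM in saline and 72.6, 18.6 and 11.6 CPM under anti-CD40 (log2 fold 5.58 ± 1.49; edgeR adjusted p = 0.0147) and was not called without WT saline B or without C (edgeR adjusted p = 0.0557 and 0.0576).

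The feedback loop of NF-kB was among the risen genes. Tnfaip3, which encodes the ubiquitin editor A20, went from 42.9 ± 9.48 to 423 ± 77.0 CPM (log2 fold 3.30 ± 0.45; edgeR adjusted p = 0.00049). Nfkbia, the inhibitor IkB-alpha, went from 339 ± 61.7 to 747 ± 248 CPM (log2 fold 1.14 ± 0.33; edgeR adjusted p = 0.0198), but was not called without WT saline B or C or WT anti-CD40 A. Nfkbib, Nfkbid and Nfkbie also rose (1.53, 1.47 and 2.55). Il18bp, the decoy of interleukin 18 and the member with the highest level, fell, with 1043, 916 and 824 CPM in saline and 538, 290.1 and 414 CPM under anti-CD40 (log2 fold -1.16 ± 0.28; edgeR adjusted p = 0.00821), and so did the phosphatase Dusp1 (-1.95 ± 0.47). Mediators of mRNA decay did not pass the test: Zfp36 stood at a log2 fold of -0.25 ± 0.43 and Zc3h12a at 0.68 ± 0.27. When the 4 libraries lacking Y-linked counts were left out, 11 rose and 2 fell.

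The letters GGG, any 2 bases and TTTCC, a core of NF-kB sites, stood on either strand in 1.49% of all promoters of genes tested, in 5.01% of those of the 579 genes that rose past 2-fold and in 1.34% of those of the 670 that fell. Among all 10548 promoters, 19 held matches of different searched motifs that overlapped. The 6 stretches printed belong to genes named here that rose (Ubd, Nfkbia, Tnfaip3, Csf1, Ltb and Gbp5) and were chosen after their values were seen. Capitals mark the NF-kB letters, on the gene's strand in GRCm38.p6.
Ubd, chr17:37193867-37193891, plus strand: cattgaacttGGGGATTTCCaaccc
Nfkbia, chr12:55492657-55492686, minus strand: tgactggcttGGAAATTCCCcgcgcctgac
Tnfaip3, chr10:19015411-19015432, minus strand: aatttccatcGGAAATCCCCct
Csf1, chr3:107760604-107760633, minus strand: gggccttgagGGAAAGTCCCtaggggccag
Ltb, chr17:35194410-35194439, plus strand: aagggtgttcGGAAAGTCCCcgggcagggg
Gbp5, chr3:142496847-142496876, plus strand: ggagaggaaaGGAAATTCCCagggctggcc

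For Ubd, the gene with the largest rise, the match began 15 bases before the start, and for Tnfaip3 12 bases before it. Csf1 and Ltb held the same 10 letters, GGAAAGTCCC, 154 and 87 bases before the start. Letters of 2 further motifs, GAGGAAGT for PU.1 and TGCTGAC for MAF, stood in 2.68% and 3.14% of all promoters and differed little between the risen (3.63% and 4.32%) and the fallen (3.58% and 4.18%) sets. No test was made of any of these shares.

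In the fit of all 12 libraries more innate sensors fell than rose, whereas 11 rose and 10 fell in a fit of only the 6 WT libraries. Of 37 tested 22 were not called, near the share over all genes, of which 39.2% were called. In all 4 (10.8%) of 37 tested members rose and 11 (29.7%) fell, and the median log2 fold was -0.18. Tlr8, an endosomal sensor of RNA (ENSMUSG00000040522, chromosome X, 167242696 to 167264329), stood at 169.8, 155 and 227 CPM in saline and 8.58, 4.51 and 3.50 CPM under anti-CD40 (log2 fold -5.06 ± 0.39; edgeR adjusted p = 1.97e-05). Tlr12, a sensor of protozoan profilin, stood at 99.0, 87.8 and 84.8 CPM in saline and 14.5, 11.4 and 16.8 CPM under anti-CD40 (log2 fold -2.67 ± 0.40). Tlr5, the flagellin receptor, stood at 9.64, 8.13 and 7.48 CPM in saline and 1.60, 1.10 and 0.246 CPM under anti-CD40 (log2 fold -3.11 ± 0.64). For these 3 genes every saline value was at least 4 times every anti-CD40 value. The receptor complex for lipopolysaccharide fell in 3 of its chains, Tlr4 (-1.66 ± 0.20; edgeR adjusted p = 0.000232), Ly96 (-1.05) and Cd14, the sensor with the highest level (log2 fold -1.33 ± 0.45; edgeR adjusted p = 0.0395). Cd14 stood at 428, 338 and 258 CPM in saline and 219.7, 135 and 53.8 CPM under anti-CD40, and its call was lost without WT saline A, B or C, sph/sph saline A, or WT anti-CD40 B or C (edgeR adjusted p from 0.0509 to 0.116).

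The 4 sensors that rose were Zbp1, Casp4, Tmem173 and Tlr9, the endosomal DNA receptor. Zbp1, a sensor of Z-form nucleic acid that triggers necroptosis, stood at 78.2, 56.4 and 54.7 CPM in saline and 497, 280.3 and 299 CPM under anti-CD40 (log2 fold 2.51 ± 0.71; edgeR adjusted p = 0.0186), though not called without WT saline B or without C (edgeR adjusted p = 0.068 and 0.0649). Casp4, which encodes caspase 11 of the noncanonical inflammasome, rose from 23.9 ± 2.08 to 114 ± 15.9 CPM (log2 fold 2.26 ± 0.42; edgeR adjusted p = 0.00243). Tmem173, which encodes STING, went from 63.5 ± 17.5 to 256 ± 40.1 CPM (log2 fold 2.01 ± 0.23; edgeR adjusted p = 0.000146). Of the canonical inflammasome Nlrp3 (0.40 ± 0.58), Casp1 (-0.10 ± 0.32) and Gsdmd (0.52 ± 0.35) did not pass the test, whereas the sensors Naip5 (-2.28 ± 0.24; edgeR adjusted p = 0.000106) and Nlrp1b (-2.08 ± 0.36; edgeR adjusted p = 0.00158) fell. The 4 rises became 2 without WT saline B, 11 without sph/sph anti-CD40 C and 2 without the 4 libraries with no Y-linked counts.

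Of the regulators of apoptosis 11 (37.9%) of 29 tested members rose and 3 (10.3%) fell, with a median log2 fold of 0.14. Of the 11 that rose 8 are known to protect from death (Bcl2, Bcl2l1, Bcl2a1a, Bcl2a1b, Bcl2a1d, Cflar, Birc2 and Birc3) and 3 to promote it (Bax, Bid and Apaf1). The A1 genes Bcl2a1d, Bcl2a1a and Bcl2a1b, near-identical survival factors of the BCL2 family and targets of NF-kB, rose by log2 folds of 4.42 ± 0.84, 2.92 ± 0.97 and 2.49 ± 0.59, and Bcl2a1b, the most abundant of them, stood at 60.0, 34.8 and 37.0 CPM in saline and 387, 183 and 169 CPM under anti-CD40. Birc2, an inhibitor of apoptosis in TNF receptor complexes, stood at 46.2, 43.1 and 45.7 CPM in saline and 300.1, 143 and 206 CPM under anti-CD40 (log2 fold 2.26 ± 0.30; edgeR adjusted p = 0.000381). Library A was highest for all 4 genes. Cflar, which blocks caspase 8 at death receptors, rose from 176 ± 4.05 to 575 ± 232 CPM (edgeR adjusted p = 0.00375), while Bax (1.09 ± 0.24), Bid (1.27 ± 0.19) and Apaf1 (0.87 ± 0.29) rose by less and Bmf, which promotes death, fell (-1.65 ± 0.26). Mcl1, the member with the highest level, stood at 665 ± 66.0 CPM in saline and 478 ± 110.2 CPM under anti-CD40 and was not called. Bcl2a1a was not called without WT saline A, B or C or WT anti-CD40 A or B (edgeR adjusted p from 0.0542 to 0.116), and without the 4 libraries with no Y-linked counts 5 rose and 3 fell. Apaf1 was not called without WT saline A, B or C, sph/sph saline A, or WT anti-CD40 A or C.

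Of the surface molecules that adjust T cell activation 11 (40.7%) of 27 tested members rose and 5 (18.5%) fell, with a median log2 fold of 0.80. Slamf7, a self-binding receptor of activated leukocytes, stood at 4.56, 3.13 and 2.38 CPM in saline and 392, 151 and 194 CPM under anti-CD40 (log2 fold 6.19 ± 0.72; edgeR adjusted p = 0.000184). Slamf1 stood at 0.0643, 0.879 and 0.887 CPM in saline and 27.5, 20.9 and 20.5 CPM under anti-CD40 (log2 fold 5.20 ± 0.69). Cd274, which encodes PD-L1, stood at 81.7, 52.8 and 53.1 CPM in saline and 1019.8, 677 and 797 CPM under anti-CD40 (log2 fold 3.73 ± 0.66; edgeR adjusted p = 0.00186). Every anti-CD40 library exceeded every saline library for these genes, A being highest. Pdcd1lg2, which encodes PD-L2, rose from a low level (from 0.953 ± 0.227 to 7.70 ± 2.53 CPM), and the adhesion molecule Icam1 rose from 151 ± 24.0 to 1029 ± 293 CPM (log2 fold 2.77 ± 0.56). Among the falls were Havcr2, which encodes TIM-3 (log2 fold -2.91 ± 0.42; edgeR adjusted p = 0.000665), and Vsir, which encodes VISTA (-1.02 ± 0.15; edgeR adjusted p = 0.000749).

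The classical pair of CD28 ligands, often used as a readout of CD40 activation, was not called. Cd80 stood at 33.3, 28.8 and 31.3 CPM in saline and 106, 24.8 and 33.0 CPM under anti-CD40, above the saline range in library A alone, and Cd86 at 369.6, 282 and 245 CPM in saline and 243, 47.0 and 58.0 CPM under anti-CD40, below every saline value in each library (log2 fold -1.37 ± 0.53; edgeR adjusted p = 0.0635). Sirpa, the inhibitory receptor for CD47 and the member with the highest level, stood at 1169 ± 212 CPM in saline and 839 ± 238 CPM under anti-CD40 and was not called.

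Of the receptors for chemokines and other attractants 12 (46.2%) of 26 tested members rose and 5 (19.2%) fell, with a median log2 fold of 1.83. Ccr7, which leads dendritic cells to lymph nodes (ENSMUSG00000037944, chromosome 11, 99144196 to 99155077), stood at 1.61, 0.604 and 1.05 CPM in saline and 286, 65.7 and 52.2 CPM under anti-CD40 (log2 fold 6.96 ± 1.25; edgeR adjusted p = 0.00212). Cxcr6, a receptor of liver lymphocytes, stood at 0.45, 0.385 and 0.72 CPM in saline and 23.3, 37.9 and 22.3 CPM under anti-CD40 (log2 fold 5.72 ± 1.13). Ccr6, which had 3 counts in saline, reached 0.266, 4.93 and 7.04 CPM under anti-CD40, a ratio of 76.5 (counting interval 25.9 to 374). It was not called without WT saline A, B or C or WT anti-CD40 B or C (edgeR adjusted p from 0.0727 to 0.108). Ccr7, itself 1 of the dendritic cell markers, was highest in library A, and Cxcr6 was highest in B, as the T and NK cell markers were. The part of either cell type in these rises was not tested. Ptafr, the receptor for platelet-activating factor, rose from 8.44 ± 2.79 to 241 ± 110.1 CPM (log2 fold 4.84 ± 0.64; edgeR adjusted p = 0.000396).

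Receptors that fell included Ccr3, with 16.7, 18.2 and 86.4 CPM in saline and 0.332, 0.682 and 0.542 CPM under anti-CD40 (log2 fold -6.24 ± 0.74; edgeR adjusted p = 0.000209) and C3ar1, the receptor for complement fragment C3a, with 217, 194 and 254 CPM in saline and 20.8, 1.99 and 1.18 CPM under anti-CD40 (log2 fold -4.81 ± 0.92). Saline C stood apart for Ccr3 with 86.4 CPM. Ccr2, the receptor of classical monocytes, was above every saline value in each anti-CD40 library (13.7, 21.7 and 56.5 CPM in saline and 113, 174 and 70.7 CPM under anti-CD40) without passing the test (edgeR adjusted p = 0.0506), and Cx3cr1 stood at 16.4 ± 12.1 CPM in saline and 19.1 ± 11.3 CPM under anti-CD40. When the 4 libraries lacking Y-linked counts were left out, 7 rose and 4 fell.

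In the colony-stimulating factor system the main receptor fell and its ligand rose. Csf1r, the receptor on which resident macrophages depend (ENSMUSG00000024621, chromosome 18, 61100598 to 61132149), stood at 6245, 5831 and 6029 CPM in saline and 539, 395 and 186 CPM under anti-CD40 (log2 fold -4.02 ± 0.38; edgeR adjusted p = 6.18e-05), while its ligand Csf1 (ENSMUSG00000014599, chromosome 3, 107741048 to 107760469) stood at 12.1, 31.4 and 17.0 CPM in saline and 242, 279.8 and 429 CPM under anti-CD40 (log2 fold 3.97 ± 0.56; edgeR adjusted p = 0.000544). Both genes separated the treatments, with library C lowest for the receptor and highest for the ligand. The other ligand of the receptor, Il34, was low (3.84 ± 3.09 CPM in saline and 1.79 ± 0.453 CPM under anti-CD40) and not called. Il3ra rose (1.56 ± 0.25; edgeR adjusted p = 0.000958), and the common beta chain Csf2rb and its near copy Csf2rb2 fell (-1.23 ± 0.32 and -1.01 ± 0.25). In all 2 (16.7%) of 12 tested members rose and 3 (25%) fell, with a median log2 fold of -0.10. Csf2 and Csf3 were not among the genes tested, with 38 and 6 counts over the WT libraries.

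Among genes of the BMP, TGF-beta and Notch pathways, whose signals maintain Kupffer cells, 23 of 38 tested were not called. This was near the share over all genes, of which 39.2% were called. In all 5 (13.2%) of 38 tested members rose and 10 (26.3%) fell, and the median log2 fold was 0.08. Smad9, a mediator of BMP signals, went from 2.18, 3.19 and 6.98 CPM to 3 counts in the 3 anti-CD40 libraries together, a ratio of 76.3 (counting interval 25.8 to 373). Hey1, a target of Notch, stood at 5.14, 8.63 and 15.6 CPM in saline and 0.0665, 0.105 and 0.295 CPM under anti-CD40 (log2 fold -5.86 ± 0.67; edgeR adjusted p = 0.000165), and the BMP receptor Bmpr1a at 25.8, 27.4 and 44.8 CPM in saline and 7.85, 3.31 and 3.10 CPM under anti-CD40 (log2 fold -2.79 ± 0.46). All 3 were highest in saline C among the saline libraries and below every saline value in each anti-CD40 library. Id3, a BMP target of the Kupffer cell program, fell as well (-2.03 ± 0.41; edgeR adjusted p = 0.00399), as did the receptor Acvrl1 (-1.61 ± 0.27; edgeR adjusted p = 0.00137).

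On the Notch side, the ligand Jag1 rose, with 0.835, 4.72 and 3.38 CPM in saline and 36.9, 19.1 and 17.4 CPM under anti-CD40 (log2 fold 3.03 ± 0.59; edgeR adjusted p = 0.00305), and so did the nuclear partner of Notch, Rbpj (1.22 ± 0.22). Dll4, the ligand shown by sinusoidal endothelium, overlapped between the treatments (7.45, 34.2 and 17.7 CPM in saline and 25.3, 62.2 and 70.3 CPM under anti-CD40), as did Eng, the member with the highest level (115, 393 and 271 CPM in saline and 270.4, 699 and 1016 CPM under anti-CD40). Neither was called. Both are endothelial genes. The summed endothelial markers had the same order of libraries, A lowest and B highest in saline and A lowest and C highest under anti-CD40. The part of endothelial cells in the values of Dll4 and Eng was not tested. Smad2, Smad4 and Ski stood at log2 folds of -0.04, 0.16 and -0.02.

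Transcription factors that define macrophages fell more than they rose. In all 5 (17.2%) of 29 tested members rose and 9 (31.0%) fell, and the median log2 fold was -0.45. Cebpa, a myeloid lineage factor, stood at 207, 219 and 222 CPM in saline and 36.7, 22.5 and 27.9 CPM under anti-CD40 (log2 fold -2.89 ± 0.25; edgeR adjusted p = 3.78e-05). Rxra, the partner of LXR and PPAR receptors and the member with the highest level, stood at 741, 782 and 839 CPM in saline and 124, 86.2 and 132 CPM under anti-CD40 (log2 fold -2.79 ± 0.23; edgeR adjusted p = 2.5e-05). For both the saline values were close together and the anti-CD40 values far below them. Maf (-1.85 ± 0.39), the LXR-alpha gene Nr1h3 (-1.75 ± 0.44) and the iron-recycling factor Spic (-1.59 ± 0.39) fell as well, whereas Spi1, which encodes PU.1, did not pass the test (393 ± 68.5 CPM in saline and 227 ± 119 CPM under anti-CD40).

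Rises in this list were of factors of other leukocytes or of activation. Runx3, a factor of cytotoxic lymphocytes and dendritic cells, stood at 1.22, 1.65 and 2.77 CPM in saline and 48.1, 73.2 and 47.8 CPM under anti-CD40 (log2 fold 4.90 ± 0.66; edgeR adjusted p = 0.000437), Egr2 at 2.57, 2.53 and 2.77 CPM in saline and 34.7, 11.5 and 17.4 CPM under anti-CD40 (log2 fold 3.01 ± 0.56), and Zbtb46, a factor of classical dendritic cells, rose from 15.6 ± 6.07 to 77.6 ± 17.6 CPM (log2 fold 2.31 ± 0.47). The summed dendritic cell markers, of which Zbtb46 is 1, and the T and NK cell markers rose in the same libraries, and their part in these rises was not tested. Klf6 (1.26 ± 0.23) and the lysosomal factor Tfeb (0.60 ± 0.18) rose too, while Klf2, Klf4 and Nr4a1 did not pass the test.

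Complement genes changed in both directions in equal number, as nearly held for all genes tested (19.4% risen and 19.7% fallen). In all 8 (25%) of 32 tested members rose and 8 (25%) fell, and the median log2 fold was -0.19. C6, a component of the membrane attack complex made by Kupffer cells (ENSMUSG00000022181, chromosome 15, 4727175 to 4814967), stood at 1283, 1179 and 1446 CPM in saline and 2.19, 11.1 and 10.4 CPM under anti-CD40 (log2 fold -7.36 ± 0.59; edgeR adjusted p = 2.44e-05). C1qc stood at 4811, 4241 and 4297 CPM in saline and 305, 49.2 and 109.5 CPM under anti-CD40 (log2 fold -4.85 ± 0.60). C1qb, the member with the highest level, stood at 4696, 4287 and 4873 CPM in saline and 382, 73.8 and 134 CPM under anti-CD40 (log2 fold -4.55 ± 0.56). C6 differed from the C1q chains in that library A was the lowest of the anti-CD40 libraries for C6 and the highest for C1q. Properdin, encoded by Cfp, which stabilises the alternative convertase, fell (-1.99 ± 0.44).

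On the other side, Cfb rose to a mean of 4559 CPM, C3 rose from 283 ± 36.5 to 2521 ± 1813 CPM (log2 fold 3.16 ± 0.89; edgeR adjusted p = 0.0182) with 4606 CPM in library A, and the C1 inhibitor Serping1 rose from 40.6 ± 13.1 to 368 ± 177 CPM (log2 fold 3.18 ± 0.63). The call of C3 was lost without WT saline A, B or C or WT anti-CD40 A, and without the 4 libraries with no Y-linked counts. Itgax, the CD11c chain of complement receptor 4 and a dendritic cell gene, rose from 20.0 ± 2.20 to 506 ± 425 CPM (log2 fold 4.66 ± 0.73; edgeR adjusted p = 0.000997), and the membrane regulator Cd55 rose (2.01 ± 0.45). When the 4 libraries lacking Y-linked counts were left out, 3 rose and 9 fell, and Cfb was then not called (edgeR adjusted p = 0.0888).

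Of the lectins and related receptors, which bind glycans on pathogens or self, 7 (21.9%) of 32 tested members rose and 14 (43.8%) fell, with a median log2 fold of -1.60 and a range of -11.18 to 8.79. The falls covered lectins of resident macrophages, among them Clec4f, Cd209f, the sialic acid receptor Siglec1 (1329, 1181 and 1455 CPM in saline and 98.7, 4.99 and 5.32 CPM under anti-CD40; log2 fold -5.19 ± 1.07) and the mannose receptor Mrc1 (1898, 1901 and 1919.7 CPM in saline and 34.2, 100.4 and 229 CPM under anti-CD40; log2 fold -3.97 ± 0.73). Siglec1 was highest in anti-CD40 A, and Mrc1 lowest there. Olr1, the receptor for oxidised LDL, stood at 0.193, 0.22 and 0.0554 CPM in saline and 47.4, 67.8 and 100.0 CPM under anti-CD40 (log2 fold 8.79 ± 0.80; edgeR adjusted p = 5.32e-05). Ly75, the endocytic receptor DEC-205 of dendritic cells and macrophages, stood at 0.129, 0.769 and 0.776 CPM in saline and 349, 144 and 159 CPM under anti-CD40 (log2 fold 8.56 ± 0.88; edgeR adjusted p = 9.89e-05). Clec4e, which encodes the mycobacterial glycolipid receptor Mincle, rose from 1.99 ± 0.229 to 613 ± 249 CPM (log2 fold 8.26 ± 1.46), and its partner Clec4d rose with it (4.78 ± 0.85). Clec7a, the beta-glucan receptor dectin-1, did not pass the test (-0.76 ± 0.35).

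Genes of coagulation and fibrinolysis mostly rose. In all 14 (58.3%) of 24 tested members rose and 1 (4.17%) fell, and the median log2 fold was 2.86. The gene of factor X, F10, stood at 16.5, 10.9 and 11.2 CPM in saline and 363, 267 and 139 CPM under anti-CD40 (log2 fold 4.32 ± 0.70; edgeR adjusted p = 0.00119). Procr, the endothelial protein C receptor and the member with the highest level, stood at 33.5, 24.4 and 36.2 CPM in saline and 1179.6, 279 and 399 CPM under anti-CD40 (log2 fold 4.30 ± 1.05; edgeR adjusted p = 0.00965). Both were highest in library A. The plasminogen activator Plau and its receptor Plaur rose (2.91 ± 0.66 and 2.82 ± 0.47), as did the receptor of thrombin, F2r (3.58 ± 1.10), and factor VII, F7 (2.50), while tissue factor, F3, which starts clotting, stood near 1 CPM in both groups (1.13 ± 0.65 CPM in saline and 0.804 ± 0.35 CPM under anti-CD40). The call of F2r was lost without WT saline A, B or C or WT anti-CD40 B or C.

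Single libraries carried some of these calls. Serpinb2 stood at 0.578, 0.604 and 0.499 CPM in saline and 38.1, 0.892 and 0.936 CPM under anti-CD40 (log2 fold 4.55 ± 1.35; edgeR adjusted p = 0.0231): B and C differed little from saline, and the gene was not called without WT anti-CD40 A (edgeR adjusted p = 0.347) or without WT saline A, B or C (0.0708, 0.0725 and 0.0755). F2rl2, which rose from a mean of 0.178 to 5.86 CPM, was not called without WT saline A, B or C or WT anti-CD40 B (edgeR adjusted p from 0.0558 to 0.0727). Of the 14 rises 9 were called without WT saline A or B, and 6 rose and none fell without the 4 libraries with no Y-linked counts. The 1 fall, of Gas6, the ligand of the engulfment receptors Axl and MerTK (-1.97 ± 0.59), was not called without WT saline B or C or WT anti-CD40 A or B.

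In the prostaglandin and leukotriene pathway the cyclooxygenases changed in opposite directions. In all 5 (19.2%) of 26 tested members rose and 10 (38.5%) fell, with a median log2 fold of -0.38. Ptgs2, the inducible cyclooxygenase COX-2 (ENSMUSG00000032487, chromosome 1, 150100031 to 150108227), stood at 0.386, 0.22 and 0.222 CPM in saline and 384, 65.7 and 70.7 CPM under anti-CD40 (log2 fold 9.28 ± 1.94; edgeR adjusted p = 0.0046), whereas Ptgs1, the constitutive form (ENSMUSG00000047250, chromosome 2, 36230426 to 36252272), stood at 866, 752 and 826 CPM in saline and 32.6, 40.5 and 56.5 CPM under anti-CD40 (log2 fold -4.24 ± 0.24; edgeR adjusted p = 3e-06). The terminal enzyme of prostaglandin E2, Ptges, stood at 0, 0.0549 and 0.222 CPM in saline and 61.5, 67.1 and 20.4 CPM under anti-CD40 (log2 fold 8.91 ± 1.44; edgeR adjusted p = 0.00115). The cyclooxygenases thus changed places without overlap, Ptgs2 with library A far above B and C.

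Enzymes of other prostanoids fell: Hpgds, for prostaglandin D2, with 58.8, 54.9 and 56.5 CPM in saline and 3.59, 2.62 and 2.17 CPM under anti-CD40 (log2 fold -4.35 ± 0.44; edgeR adjusted p = 8.98e-05), Tbxas1, for thromboxane (log2 fold -2.77 ± 0.42), and Ptgis, for prostacyclin (-3.63 ± 0.87). Hpgd, which degrades prostaglandins and had the highest level of the list, stood at 989.9, 1045 and 1379 CPM in saline and 25.5, 90.0 and 243 CPM under anti-CD40 (log2 fold -3.25 ± 0.78; edgeR adjusted p = 0.00866). Alox12 rose, with 2.18, 3.24 and 3.32 CPM in saline and 32.8, 149 and 167 CPM under anti-CD40 (log2 fold 5.31 ± 1.01; edgeR adjusted p = 0.00283), library A lying lowest. Of the receptors for prostaglandin E2, Ptger4 rose (2.38 ± 0.37; edgeR adjusted p = 0.000863) and Ptger2 fell (-3.36 ± 0.42). Ptgs2 was not called by limma-voom (adjusted p = 0.0681) or without the 4 libraries with no Y-linked counts (edgeR adjusted p = 0.0725), when 3 rose and 10 fell in the list.

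Of the enzymes and carriers that use amino acids during macrophage activation 12 (41.4%) of 29 tested members rose and 6 (20.7%) fell, with a median log2 fold of 0.60. Besides Nos2, Acod1, which makes itaconate (ENSMUSG00000022126, chromosome 14, 103046977 to 103056573), stood at 8.68, 1.48 and 2.88 CPM in saline and 1008, 447 and 279 CPM under anti-CD40 (log2 fold 7.06 ± 1.77; edgeR adjusted p = 0.0109). Il4i1, an amino acid oxidase, stood at 11.1, 10.6 and 14.9 CPM in saline and 1002, 516 and 501 CPM under anti-CD40 (log2 fold 5.79 ± 0.45; edgeR adjusted p = 2.12e-05). Wars, the tryptophanyl-tRNA synthetase induced by interferon-gamma, stood at 63.2, 64.1 and 52.3 CPM in saline and 360.1, 604 and 1027 CPM under anti-CD40 (log2 fold 3.47 ± 0.44; edgeR adjusted p = 0.000292). Library A was highest for Acod1 and Il4i1 and lowest for Wars. Glul, which makes glutamine and had the highest level of the list, fell, with 728, 986 and 1169.7 CPM in saline and 161, 159 and 305 CPM under anti-CD40 (log2 fold -2.21 ± 0.34; edgeR adjusted p = 0.000873).

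The arginase genes did not follow Nos2. Arg1 stood at 72.8, 108 and 59.3 CPM in saline and 196, 15.2 and 11.8 CPM under anti-CD40, highest in anti-CD40 A and below every saline value in B and C, and was not called. Arg2 fell (-2.13 ± 0.44; edgeR adjusted p = 0.00428). The arginine transporter Slc7a1 rose (2.7 ± 0.40), as did Odc1, the first enzyme of polyamine synthesis (2.73 ± 0.31; edgeR adjusted p = 0.000169), and Gch1, which starts the synthesis of the Nos2 cofactor biopterin (1.36 ± 0.35). Sat1, which breaks polyamines down, fell (-2.55 ± 0.32; edgeR adjusted p = 0.000285). Ido1 had 3 counts in saline and 19 under anti-CD40, a ratio of 6.03 (counting interval 1.78 to 31.8), and was not called. Of the 12 rises 7 were called without WT saline C, while 6 rose and 5 fell without the 4 libraries with no Y-linked counts. Acod1 was not called by limma-voom (adjusted p = 0.166).

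Of 29 genes of NAD synthesis and use tested 18 were not called, near the share over all genes, of which 39.2% were called. The changes included the salvage enzyme and part of the PARP family. In all 7 (24.1%) of 29 tested members rose and 4 (13.8%) fell, and the median log2 fold was 0.21. Nampt, the rate-limiting enzyme of NAD salvage and the member with the highest level, stood at 239, 237 and 269 CPM in saline and 1214, 622 and 827 CPM under anti-CD40 (log2 fold 1.84 ± 0.45; edgeR adjusted p = 0.00997). Bst1, an ectoenzyme that uses NAD, stood at 1.61, 1.65 and 3.16 CPM in saline and 219, 77.6 and 42.4 CPM under anti-CD40 (log2 fold 5.72 ± 1.15; edgeR adjusted p = 0.00379), while its relative Cd38 stood at 555 ± 11.6 CPM in saline and 505 ± 105 CPM under anti-CD40 and was not called. Among the PARP genes Parp3 stood at 33.8, 35.4 and 25.2 CPM in saline and 148, 110.1 and 205 CPM under anti-CD40 (log2 fold 2.30 ± 0.22; edgeR adjusted p = 6.18e-05) and Parp11 at 19.2, 19.8 and 20.9 CPM in saline and 97.9, 46.8 and 71.8 CPM under anti-CD40 (log2 fold 1.85 ± 0.38; edgeR adjusted p = 0.00392). Parp14 was above every saline value without passing the test (0.90 ± 0.35; edgeR adjusted p = 0.0651), and Parp2 fell (-0.71 ± 0.13). Among the 8 libraries with Y-linked counts 2 rose and 4 fell, and Nampt was then not called (edgeR adjusted p = 0.142).

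In the handling of extracellular ATP and adenosine 6 (26.1%) of 23 tested members rose and 9 (39.1%) fell, with a median log2 fold of -0.10. Adora2a, the anti-inflammatory adenosine receptor, stood at 1.54, 6.15 and 3.88 CPM in saline and 118, 91.4 and 76.8 CPM under anti-CD40 (log2 fold 4.62 ± 0.60; edgeR adjusted p = 0.000357). Adora2b stood at 0.9, 0.33 and 0.997 CPM in saline and 15.5, 9.45 and 4.33 CPM under anti-CD40 (log2 fold 3.71 ± 0.87; edgeR adjusted p = 0.00797). Entpd1, which encodes the ATP-degrading CD39, stood at 869.7, 722 and 465 CPM in saline and 230.3, 84.4 and 139 CPM under anti-CD40 (log2 fold -2.18 ± 0.38; edgeR adjusted p = 0.00165). None of the 3 genes overlapped between the treatments. P2ry2, an ATP receptor, rose (3.07 ± 0.50; edgeR adjusted p = 0.00116), and P2ry12, an ADP receptor, fell, with 141, 139.7 and 202 CPM in saline and 32.4, 16.1 and 15.1 CPM under anti-CD40 (log2 fold -2.93 ± 0.30; edgeR adjusted p = 0.000102), as did the ATP-gated channel P2rx7 (-1.52 ± 0.17; edgeR adjusted p = 0.000148). Xdh, the xanthine dehydrogenase and the member with the highest level, stood at 436 ± 70.4 CPM in saline and 459 ± 199.9 CPM under anti-CD40 and was not called. Among the 8 libraries with Y-linked counts 2 rose and 7 fell.

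Of the 30 citric acid cycle genes tested 18 were not called, near the share over all genes, of which 39.2% were called. In all 5 (16.7%) of 30 tested members rose and 7 (23.3%) fell, and the median log2 fold was 0.09. The NADP-dependent isocitrate dehydrogenases fell, Idh1, the member with the highest level, with 439, 361 and 466 CPM in saline and 142, 69.3 and 80.5 CPM under anti-CD40 (log2 fold -2.12 ± 0.27; edgeR adjusted p = 0.000274) and the mitochondrial Idh2 with 94.3, 85.9 and 92.0 CPM in saline and 36.4, 28.5 and 25 CPM under anti-CD40 (log2 fold -1.60 ± 0.17; edgeR adjusted p = 0.000122). Aco1, the cytosolic aconitase that doubles as an iron regulator, fell (-1.36 ± 0.17; edgeR adjusted p = 0.000249), and so did the pyruvate dehydrogenase kinase Pdk2 (-2.31 ± 0.34; edgeR adjusted p = 0.000657). The 4 subunits of succinate dehydrogenase, Sdha, Sdhb, Sdhc and Sdhd, stood at log2 folds of -0.26, 0.09, 0.09 and -0.15, and none was called. The 5 rises, led by Pdp1 (1.03 ± 0.21) and Mdh2 (0.97 ± 0.27), fell to 1 to 3 without any 1 of the 6 WT libraries or sph/sph saline A, and to 1 without the 4 libraries with no Y-linked counts.

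Fatty acid oxidation had the highest share of falls of the 23 lists. Here none of 40 tested members rose and 23 (57.5%) fell, and the median log2 fold was -0.78. A single gene rose without sph/sph anti-CD40 A or C. Hsd17b4, the multifunctional enzyme of peroxisomal beta-oxidation (ENSMUSG00000024507, chromosome 18, 50128201 to 50196269), stood at 208, 202 and 272 CPM in saline and 53.0, 39.2 and 37.8 CPM under anti-CD40 (log2 fold -2.39 ± 0.18; edgeR adjusted p = 1.83e-05). Its counterpart Ehhadh stood at 24.2, 26.9 and 18 CPM in saline and 4.39, 3.78 and 4.87 CPM under anti-CD40 (log2 fold -2.40 ± 0.30; edgeR adjusted p = 0.00027). Abcd2, a peroxisomal importer of very long chains, stood at 23.1, 29.3 and 69.4 CPM in saline and 9.97, 5.14 and 7.53 CPM under anti-CD40 (log2 fold -2.43 ± 0.39; edgeR adjusted p = 0.00116). Values of each treatment were apart for all 3 genes. Cat, the peroxisomal catalase and the member with the highest level, fell (-1.73 ± 0.34; edgeR adjusted p = 0.0032), as did the mitochondrial gatekeeper Cpt1a (-1.41 ± 0.21; edgeR adjusted p = 0.000702), the dehydrogenase Acadm (-1.22 ± 0.18; edgeR adjusted p = 0.000648) and the thiolase Acaa2 (-2.19 ± 0.28; edgeR adjusted p = 0.00031).

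Not every step fell. Both subunits of the mitochondrial trifunctional protein, Hadha and Hadhb, stayed within a narrow interval, at 128 ± 13.8 CPM in saline and 116 ± 6.58 CPM under anti-CD40 (limma-voom 95% interval of the log2 fold -0.40 to 0.14) and 43.2 ± 2.69 CPM in saline and 41.9 ± 0.811 CPM under anti-CD40 (-0.38 to 0.29). Ppara, the nuclear receptor that drives the pathway in hepatocytes, was low (3.47 CPM in saline, log2 fold -2.66 ± 0.85) and lost its call without WT saline B or C or any 1 of the anti-CD40 libraries (edgeR adjusted p from 0.0633 to 0.0915). Hepatocyte markers, which express these genes strongly, also had lower sums under anti-CD40, from 5744, 4669 and 3324 CPM to 3127, 2056 and 945 CPM. Their part in the falls was not tested. Among the 8 libraries with Y-linked counts none rose and 19 fell.

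Ribosome biogenesis rose in small steps at most members. In all 20 (66.7%) of 30 tested members rose and 1 (3.33%) fell, and the median log2 fold was 0.73 and the highest 1.67. Nhp2, a subunit of the box H/ACA particle that modifies ribosomal RNA, stood at 17.5, 14 and 14 CPM in saline and 47.4, 55.1 and 42.5 CPM under anti-CD40 (log2 fold 1.67 ± 0.30; edgeR adjusted p = 0.00192). Dkc1, its pseudouridine synthase, stood at 22.5, 20.2 and 16.6 CPM in saline and 35.1, 65.0 and 45.1 CPM under anti-CD40 (log2 fold 1.29 ± 0.28; edgeR adjusted p = 0.00543). Nop58, of the box C/D particle, stood at 29.7, 28.0 and 18.9 CPM in saline and 53.0, 96.3 and 63.1 CPM under anti-CD40 (log2 fold 1.47 ± 0.31; edgeR adjusted p = 0.00473). For Nhp2, Dkc1 and Nop58 anti-CD40 B was the highest library, and without it 12 of the 20 rises were called. Rrp9 (1.33 ± 0.29; edgeR adjusted p = 0.00567) and Npm1, nucleophosmin (0.96 ± 0.18; edgeR adjusted p = 0.00288), rose as well. Ncl, nucleolin and the member with the highest level, rose from 244 ± 8.21 to 415 ± 103 CPM (edgeR adjusted p = 0.0159) but was not called without WT saline B or C or WT anti-CD40 B (edgeR adjusted p = 0.0581, 0.0554 and 0.0742). Myc, which drives this program, stood at 63.1 ± 7.52 CPM in saline and 70.8 ± 17.3 CPM under anti-CD40, and Polr1a, the large subunit of RNA polymerase I, fell (-0.61 ± 0.13; edgeR adjusted p = 0.00554). Among the 8 libraries with Y-linked counts 14 rose and none fell.

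In zinc and copper handling 7 (25.9%) of 27 tested members rose and 6 (22.2%) fell, with a median log2 fold of 0.00. The metallothionein Mt2 stood at 8.23, 12.4 and 9.25 CPM in saline and 148, 162 and 285 CPM under anti-CD40 (log2 fold 4.32 ± 0.53; edgeR adjusted p = 0.000248) and Mt1 rose from 61.3 ± 12.6 to 177 ± 65.2 CPM (log2 fold 1.53 ± 0.36; edgeR adjusted p = 0.00832). Slc30a4, a vesicular zinc transporter, stood at 1.29, 4.56 and 2.77 CPM in saline and 28.1, 50.2 and 52.9 CPM under anti-CD40 (log2 fold 3.92 ± 0.78; edgeR adjusted p = 0.00353). Slc39a4, a zinc importer, stood at 1.54, 1.15 and 1.66 CPM in saline and 15.4, 17.4 and 10.0 CPM under anti-CD40 (log2 fold 3.29 ± 0.66; edgeR adjusted p = 0.00377). The exporter Slc30a1, a target of the same metal sensor as the metallothioneins, fell (-1.22 ± 0.32; edgeR adjusted p = 0.0125). The sensor itself, Mtf1, stood at 37.9 ± 2.02 CPM in saline and 39.7 ± 6.68 CPM under anti-CD40 and the importer Slc39a1, the member with the highest level, at 171 ± 14.8 CPM in saline and 171 ± 24.1 CPM under anti-CD40.

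Cp, ceruloplasmin, the copper carrier that oxidises iron, rose from 50.0 ± 13.3 to 209.7 ± 97.5 CPM (log2 fold 2.07 ± 0.57; edgeR adjusted p = 0.0164), but was not called without WT saline A or B or WT anti-CD40 A (edgeR adjusted p = 0.0611, 0.0598 and 0.0507). Of the 7 rises in this list 4 were called without WT anti-CD40 A, of the 6 falls 3 without WT saline A or C, and 2 rose and 1 fell without the 4 libraries with no Y-linked counts.

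In the circadian clock 4 (20.0%) of 20 tested members rose and none fell, with a median log2 fold of -0.09. The 4 rises were repressors: Cry1 stood at 3.47, 4.01 and 2.94 CPM in saline and 21.1, 23.6 and 25.3 CPM under anti-CD40 (log2 fold 2.74 ± 0.20; edgeR adjusted p = 1.33e-05), Bhlhe40, the member with the highest level, at 76.0, 53.5 and 29.7 CPM in saline and 438, 313 and 230.1 CPM under anti-CD40 (log2 fold 2.62 ± 0.37; edgeR adjusted p = 0.000545), Nfil3 at 1.99, 2.25 and 3.05 CPM in saline and 20.8, 22.5 and 14.1 CPM under anti-CD40 (log2 fold 2.97 ± 0.60; edgeR adjusted p = 0.00397) and Bhlhe41 at 1.35, 0.934 and 0.887 CPM in saline and 5.92, 3.04 and 3.20 CPM under anti-CD40 (log2 fold 1.93 ± 0.40; edgeR adjusted p = 0.00423). Cry1 was close to constant within each treatment. Other clock genes were spread widely within a treatment and were not called. Dbp stood at 30.2, 38.9 and 6.15 CPM in saline and 10.6, 77.6 and 92.0 CPM under anti-CD40, Nr1d1 at 67.5, 80.5 and 26.2 CPM in saline and 4.19, 35.2 and 63.5 CPM under anti-CD40 and Arntl, which encodes BMAL1, at 6.62, 6.54 and 22.9 CPM in saline and 9.71, 7.61 and 7.44 CPM under anti-CD40. Saline C was low for Dbp, Nr1d1 and Per1 (46.1 against 147 and 189 CPM) and high for Arntl, the reverse of saline A and B, and anti-CD40 A was low for Dbp and Nr1d1. The hour at which each liver was taken is not given in the sources used here, and its part in these values was not tested. No clock gene fell in the fit of all libraries, while 1 or 2 did without WT saline C, WT anti-CD40 C or any 1 of the sph/sph anti-CD40 libraries.

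A response this broad still left genes that were measured as near constant. The limma-voom 95% interval of the log2 fold lay within -0.5 and 0.5 for 1167 genes (8.43%), 1143 of them with a mean of over 10 CPM. Among list members these included Stat6, the factor of interleukin 4 signals (322 ± 27.6 CPM in saline and 305 ± 67.6 CPM under anti-CD40; interval -0.49 to 0.31), Stat5b (88.1 ± 4.54 CPM in saline and 95.4 ± 9.41 CPM under anti-CD40; interval -0.17 to 0.39) and Xbp1, a factor of the unfolded protein response (209 ± 9.89 CPM in saline and 205 ± 43.4 CPM under anti-CD40; interval -0.42 to 0.31). Adaptors of death receptors were of this kind as well, Tradd (25.9 ± 0.322 CPM in saline and 26.1 ± 4.48 CPM under anti-CD40; interval -0.46 to 0.43) and Fadd (19.8 ± 2.02 CPM in saline and 21.6 ± 3.57 CPM under anti-CD40; interval -0.26 to 0.49), and so were Nr1h2, which encodes LXR-beta (101 ± 16.7 CPM in saline and 107 ± 8.51 CPM under anti-CD40; interval -0.26 to 0.45), and the matrix enzymes Ogdh (241 ± 14.2 CPM in saline and 241 ± 38.5 CPM under anti-CD40; interval -0.39 to 0.38), Pdha1 (84.6 ± 3.59 CPM in saline and 86.9 ± 13.4 CPM under anti-CD40; interval -0.32 to 0.38) and Fh1 (46.9 ± 1.68 CPM in saline and 51.1 ± 4.87 CPM under anti-CD40; interval -0.23 to 0.47). The count of such genes was 686, 666 and 756 without WT saline A, B and C.

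The WT response was then set against that of sph/sph mice given the same 2 treatments, through the interaction term, the sph/sph response minus the WT response. It was called for 595 genes (4.3%): 440 (3.18%) had a higher log2 fold in sph/sph and 155 (1.12%) a lower one. In sph/sph itself 108 genes (0.78%) were called between the treatments, a count for which other settings are not given here. A missed call in sph/sph does not show that a gene stayed the same. The count of interactions depended on single libraries. It was 269, 370 and 295 without WT saline A, B and C, 338 and 388 without WT anti-CD40 B and C, 259 and 274 without sph/sph saline A and B, and 386 without sph/sph anti-CD40 B. It rose to 944 without WT anti-CD40 A and to 942 without sph/sph anti-CD40 C. DESeq2 gave 1393, and without the 4 libraries with no Y-linked counts it was 153.

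The genes with the largest interaction among those called in WT were, on the higher side, the resident macrophage genes. Clec4f, which fell by 11.18 on the log2 scale in WT, went from 7696 ± 1834 to 2099 ± 1581 CPM in sph/sph, a log2 fold of -1.87 ± 0.56, so that the interaction was 9.31 ± 0.90 (edgeR adjusted p = 0.000426). For Cd207 the interaction was 11.66 ± 0.92 (edgeR adjusted p = 0.000168), for Cd163 11.03 ± 0.97 (edgeR adjusted p = 0.000272) and for Vsig4 8.85 ± 1.38 (edgeR adjusted p = 0.00716). In sph/sph Cd163 went from 614 ± 178 to 268 ± 150.2 CPM, Vsig4 from 3105 ± 465 to 1131 ± 613 CPM and Cd207 from 86.1 ± 6.45 to 32.4 ± 28.0 CPM, and none of these 4 genes passed the test there. Tmc3 stood at a log2 fold of 0.01 ± 0.47 in sph/sph (interaction 8.69 ± 0.88, edgeR adjusted p = 0.000562) and Chp2 at -2.20 ± 0.88 (interaction 10.72 ± 1.77, edgeR adjusted p = 0.00897). These 6 interactions were called in all 12 fits that left out 1 library, though that of Chp2 was not called by limma-voom or without the 4 libraries with no Y-linked counts. Adgre1, the bait, stood at a log2 fold of -0.21 ± 0.50 in sph/sph (interaction 4.13 ± 0.73; edgeR adjusted p = 0.0123), and of the 14 Kupffer cell markers 9 were called for the interaction, with a median log2 fold of -0.79 in sph/sph.

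On the lower side the largest interactions were of Ch25h (-7.86 ± 1.08; edgeR adjusted p = 0.00347), the neuronal-type tubulin Tubb3 (-7.75 ± 1.16; edgeR adjusted p = 0.00557), Tnfrsf9 (-7.73 ± 1.25; edgeR adjusted p = 0.00841), Gzma (-7.12 ± 1.67; edgeR adjusted p = 0.0409), Olr1 (-6.81 ± 1.01; edgeR adjusted p = 0.00557) and the metalloreductase Steap2 (-6.44 ± 1.45; edgeR adjusted p = 0.0364). In WT, Tubb3 had gone from 0.276 ± 0.11 to 81.9 ± 50.0 CPM and Steap2 from 1.04 ± 0.393 to 82.7 ± 43.7 CPM, while in sph/sph they went from 3.59 ± 3.15 to 4.85 ± 1.29 CPM and from 10.1 ± 7.59 to 9.05 ± 9.89 CPM. The interactions of Gzma and Steap2 lay near the threshold. They were not called in 10 and 8 of the 12 fits that left out 1 library, whereas those of Ch25h, Tubb3, Tnfrsf9 and Olr1 were called in all 12. Limma-voom did not call Gzma, Steap2, Tubb3 or Tnfrsf9, and without the 4 libraries with no Y-linked counts Tubb3 was the 1 gene of the 6 that was called. The median log2 fold in sph/sph was 1.28 for the TNF superfamily, against 3.24 in WT. The interaction was called for 5 of the 34 TNF superfamily genes and for 8 of the 32 lectins.

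**Figure D5:**
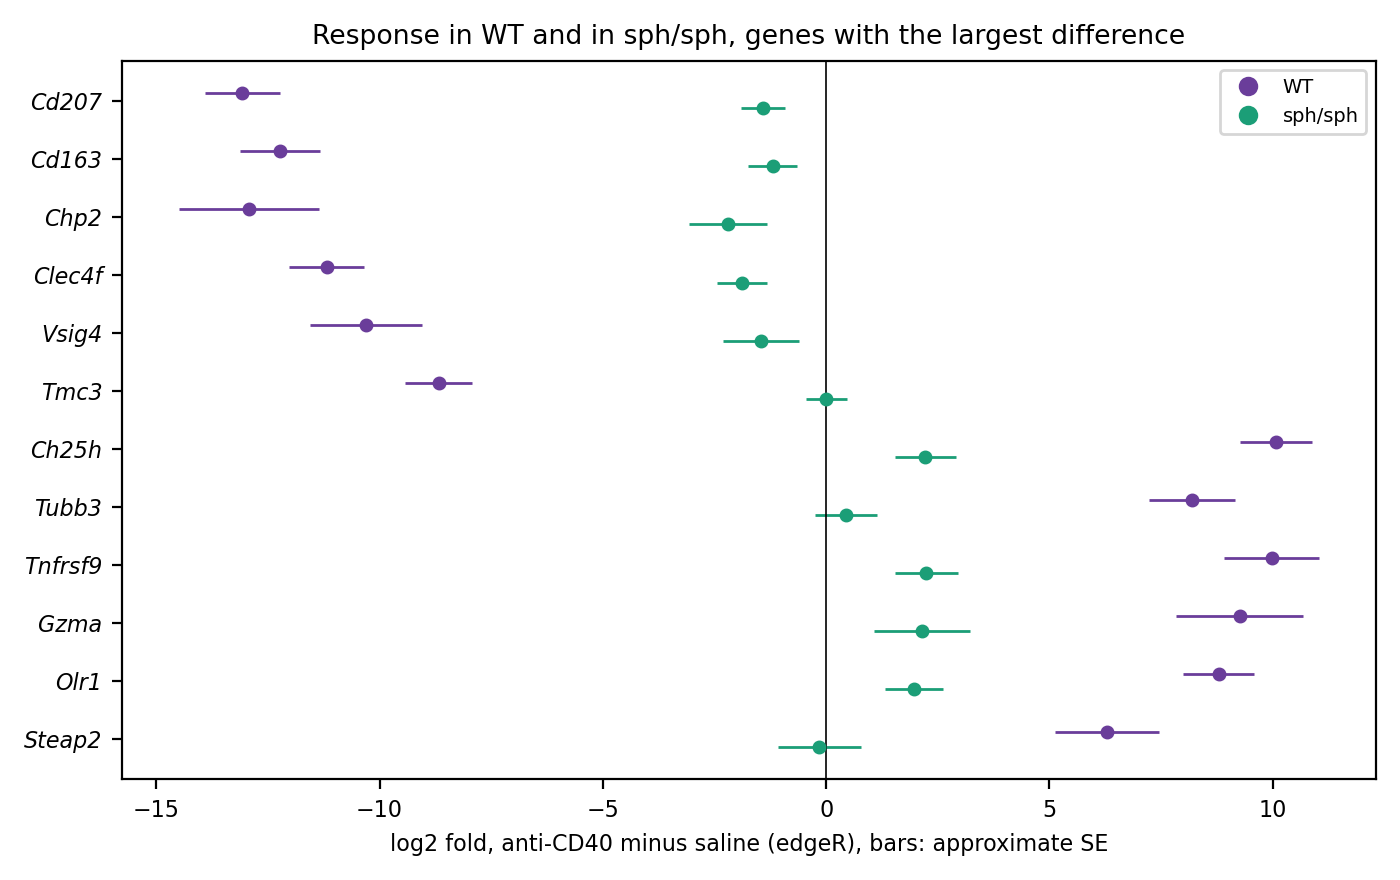
Log2 fold of anti-CD40 against saline in WT (purple) and sph/sph (green) for the 12 genes with the largest interaction among genes called in WT; bars are approximate standard errors. The upper 6 genes lie between -8.68 and -13.07 in WT and between -2.20 and 0.01 in sph/sph, and the lower 6 lie between 6.29 and 10.08 in WT and between -0.15 and 2.25 in sph/sph.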

How the data were processed

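RNA of bead-bound liver cells of 12 mice was sequenced as stranded libraries, per the labels' protocols. Reads were aligned to GRCm38.p5 with STAR 2.7.0e, handled with SAMtools 1.9 and counted with featureCounts, per the submitters' processing notes; the authors deposited raw counts per gene, unnormalized, for 25700 Ensembl identifiers, of which 25587 had a symbol and 6872 were at 0 in every library. All columns were used. Coordinates and exon lengths are of the GENCODE annotation of GRCm38, and promoter sequences are RefSeq's of GRCm38.p6.

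Genes were kept by filterByExpr on the 4 groups, scaled by TMM and tested by edgeR 4.0.16 (robust quasi-likelihood fit of all 12 libraries, R 4.3.3), with the WT contrast, the TREAT test against 2-fold and the interaction with genotype. Narrow intervals are 95% intervals of limma-voom (limma 3.58.1) within a log2 fold of 0.5. P-values rest on the spread between animals within groups, estimated jointly over all 4 groups, sph/sph included, with information shared across genes. Folds against 0 counts use a floor of 3 counts over the group. Both floors and counting intervals cover counting error only.

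Named genes are the 12 largest rises and falls of called genes with a mean of at least 10 CPM and no overlap between treatments, leaving out predicted genes and receptor segments, the 8 largest gains and losses of CPM per kilobase, Cd40 and Adgre1, the 4 largest called changes and the highest level of each list, and the 6 largest interactions in each direction. A few of the genes so named are not reported here. The comparison, the gene lists and the markers were chosen with earlier results of these data known. Alternatives were other size factors and filters, DESeq2 1.42.0, limma-voom, the 6 WT libraries alone, a term for sex, each library left out, and, chosen after seeing the data, fits without the libraries lacking Y-linked counts and a block for the identifier that 1 WT and 1 sph/sph library share in each treatment. The list gene Rigi matched no identifier, and Wars, Tmem173 and Arntl are the table's names of Wars1, Sting1 and Bmal1.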

Additional observations from a re-analysis of the deposited data

Results flagged for a closer look

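The log2 response to anti-CD40 differed between WT and sph/sph mice by the interaction test of edgeR for 595 genes, and 60 genes named above were among them, 42 with a higher response in sph/sph and 18 with a lower one. Among the largest falls in WT, the sph/sph response minus the WT response was 11.66 for Cd207, 11.03 for Cd163, 10.72 for Chp2, 9.31 for Clec4f, 8.85 for Vsig4, 8.69 for Tmc3 and 8.23 for Cd209f. It was 7.60 for Mmp27, 7.44 for Kcnj16, 7.37 for Pcolce2 and 6.86 for Ccdc148. Among complement genes and other abundant or macrophage transcripts it was 6.37 for C6, 5.46 for Cd5l, 4.16 for C1qc, 4.13 for Adgre1, 3.98 for C1qb, 3.52 for C1qa, 3.43 for Fcna, 2.48 for Wfdc17 and 3.11 for Csf1r. Sensors and surface receptors stood at 5.05 for Ccr3, 4.30 for Tlr8, 4.27 for Tlr5, 3.14 for Tlr12, 3.02 for Clec1b, 2.38 for Havcr2, 2.15 for P2ry12, 2.12 for Siglecf, 1.95 for Tnfrsf21, 1.64 for Naip5 and 1.19 for P2rx7. Transcription factors stood at 4.13 for Hey1, 1.85 for Rxra and 1.54 for Cebpa, enzymes and the receptor of prostaglandins at 3.20 for Ptgs1, 2.87 for Hpgds and 2.35 for Ptger2, and further genes at 1.83 for Hsd17b4, 1.64 for Tnfsf13, 1.49 for Bmf, 1.27 for Cpt1a and 1.12 for Idh2. On the lower side it was -7.86 for Ch25h, -7.75 for Tubb3, -7.73 for Tnfrsf9, -7.12 for Gzma, -6.81 for Olr1, -6.44 for Steap2 and -5.71 for Cst7. Cytokine and lipid mediator genes stood at -3.97 for Csf1, -3.73 for Ptafr and -1.76 for Il3ra, and further genes at -3.88 for Mt2, -2.40 for Wars, -2.34 for Bhlhe40, -2.16 for Odc1, -2.07 for Fas, -1.80 for Parp3, -1.41 for Irf8 and -1.10 for Cry1.

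These calls held to different degrees over the 12 fits that left out 1 library: 31 of the 60 genes were called in all 12 and 29 were lost in at least 1. The number of such fits in which a gene was not called was 11 for Cry1; 10 for Cd209f, Bmf, Wars and Gzma. It was 9 for Wfdc17, Havcr2, Cpt1a and Idh2; 8 for Tlr5, Ptger2, Siglecf, Cebpa, Irf8, Fas and Steap2; 7 for Tnfsf13, Bhlhe40 and Ptafr. It was 6 for C1qa, Naip5 and P2rx7; 5 for Il3ra; 4 for Hey1, Hpgds and Cst7; 3 for Odc1; 2 for P2ry12; 1 for Csf1. Limma-voom did not call 16, Chp2, Cd209f, Mmp27, Kcnj16, Ccr3, Hey1, Hpgds, Wfdc17, Bmf, Cry1, Fas, Cst7, Steap2, Gzma, Tnfrsf9 and Tubb3. Without the 4 libraries with no Y-linked counts 36 were not called, and DESeq2 called all 60. The block for the shared identifier lost 9, Cd209f, Ptger2, Cebpa, Bmf, Cpt1a, Cry1, Fas, Wars and Gzma. The genes called in all 12 fits, by limma-voom and without those 4 libraries were Cd207, Cd163, Clec4f, Vsig4, Tmc3, Pcolce2, Ccdc148, C6, Cd5l, Tlr8, C1qc, Adgre1, C1qb, Fcna, Ptgs1, Tnfrsf21 and Hsd17b4.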

How the results depend on the processing

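No gene was called in the direction opposite to that reported in any of the 23 alternatives, and of 167 named calls 114 held in all of them and 53 were lost in at least 1, 46 of them without the 4 libraries with no Y-linked counts. That setting, chosen after seeing the data, left 1093 rises and 1752 falls, 250 and 545 past 2-fold, and 153 interactions; the share of rises among calls went from 49.6% to 38.4%. Only the 4 WT libraries with Y-linked counts gave 1273 rises past 2-fold. Limma-voom gave 397 and 562 genes past 2-fold in each direction, and DESeq2 gave 1393 interactions. Leaving out 1 library gave 1647 to 3297 rises, 2104 to 3286 falls, 489 to 1126 rises and 656 to 1147 falls past 2-fold, 259 to 944 interactions and 666 to 1527 genes with a narrow interval. A margin of log2 fold 1 gave 5037 such genes. The cause of these shifts was not tested, and neither was the part of the smaller number of libraries in fits that left some out. Of 1656 list counts over the alternatives 166 moved by more than 1.5 times, and of 828 list medians 2 moved. No paired analysis was possible because the columns carry no replicate number and no identifier shared between saline and anti-CD40. A replicate block for the identifier that 1 WT and 1 sph/sph library share in each treatment, added after seeing the data, gave 2056 rises, 2223 falls, 609 and 719 past 2-fold and 499 interactions, and 13 named calls were lost.

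With 3 libraries per group, genes at a few counts are limited by counting, and a missed call does not show that a gene stayed the same.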
